A study of Mus musculus with 8 samples.

Results

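C-type fibroblasts, 1 of 3 fibroblast populations sorted from the mouse lung, were compared with the lung single-cell suspension from which they were taken. The comparison uses 4 of the 8 samples of the series: C-type fibroblasts 1 and 2 (arrays C1 and C2) and pulmonary single cells 1 and 2 (Pu1 and Pu2), chosen by their titles. All samples came from the lungs of adult female C57BL/6 mice aged 12 to 16 weeks, with no genetic change and no treatment named in the labels. Each sample held 50000 freshly isolated cells, and the 2 samples of a group were prepared independently; the sources used here do not give the number of mice behind a sample. The suspension was stained with antibodies to 6 lineage proteins (CD45, CD31, TER119, CD146, E-Cadherin and Lyve-1) and to 3 others (Thy-1, Sca-1 and Pdgfra), and the A, B and C types were sorted from it. The sources used here do not give the combination of these that defines the C type. The A-type and B-type samples, 2 of each, entered the same fit and so add to the estimate of spread behind each error and p-value. Their gene levels are given only where the C type is set against them.

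Lung fibroblasts are the connective tissue cells that lie in the alveolar walls and around airways and vessels. They make the collagens and elastic fibres that let the lung stretch and recoil, and they send growth factors to the epithelium and endothelium beside them. Several kinds are known: alveolar fibroblasts, some of which store vitamin A or lipid, adventitial fibroblasts of the cuffs around vessels and airways, and contractile fibroblasts near airways and alveolar ducts. A whole-lung suspension also holds epithelial, endothelial, blood and mesothelial cells, so RNA from fibroblasts is only part of what its arrays read.

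Expression was read on 1-colour arrays, and each value below is log2 of a probe's processed signal relative to the 75th percentile of its array, so that 0 is the level of that percentile. A gene is represented by its brightest kept probe, and levels of different genes are not compared, since each probe has its own response. Differences are C minus Pu on the log2 scale, given as the estimate ± its standard error in the fit (n = 2 arrays in each group). The spread behind that error is pooled over all 8 arrays, those of the A and B types included. P-values are Benjamini-Hochberg adjusted over all genes tested. Where a gene was not well above background on either array of a group, the fold is a lower bound, set against the lowest signal well above background on each of those arrays, which is also the floor named where 1 array was below background. A gene was tested if its probe was well above background on both arrays of either group, which kept 16759 of 24022 named genes. Of these, 13264 were above background on all 4 arrays, 602 were kept through the C arrays alone and 2893 through the Pu arrays alone. The 75th percentile of the signal was 128 and 259.8 on the Pu arrays and 141 and 113 on the C arrays, and spots above background made up 68.7% on each Pu array, 60.6% on C1 and 54.6% on C2. Duplicate arrays differed more here than in the other groups: 30.1% of the genes tested lay at least 2-fold apart between Pu1 and Pu2 and 19.6% between C1 and C2, against 4.90% and 5.18% within the A and B types. Across genes, which are not independent, the correlation was 0.916 between Pu1 and Pu2, 0.950 between C1 and C2, and 0.748 to 0.781 for a C array with a Pu array. Both Pu arrays were on 1 slide, scanned together, and all fibroblast arrays on another, so an effect of slide or scan and the difference between C and Pu cannot be told apart.

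In limma's moderated test, called at an adjusted p under 0.05, 5134 genes differed between C-type fibroblasts and the suspension, 30.6% of those tested. Of these, 2660 genes (15.9% of those tested) were higher in C and 2474 (14.8%) were lower. These shares are the background for the counts of list members given below. The differences were large: 4951 of the called genes differed by at least 2-fold, and 402 higher and 992 lower genes by at least 8-fold. The plot of group means shows the lower genes reaching farther from the diagonal than the higher ones, down to signals that no C array measured. The 2 groups did not overlap for 10052 genes (60.0%), 5168 with both C arrays above both Pu arrays (30.8%) and 4884 below (29.1%). Called genes were 51.8% higher at this scaling, where the median over all genes tested was 0.04. Scaling to each array's median moved that median to 0.44 and the share to 68.8%, as did the authors' table, which is scaled in the same way, and a 75th percentile taken over the probes that were above background on every array moved them to -0.27 and 36%. After normexp background correction the share was 59.0%, among genes above background on all 4 arrays 68.1%, and in a fit of the 4 compared arrays alone 42.0%. That last fit called 2525 genes, and with 1 compared array left out the count ran from 3823 without C2 to 6463 without Pu2. The median of a gene list kept its sign under all 5 other scalings and corrections for 43 of the 48 lists examined, and the 5 exceptions are the pericyte, Schwann and neural, VEGF, interferon and housekeeping lists, whose medians lay near 0.

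**Figure D1:**
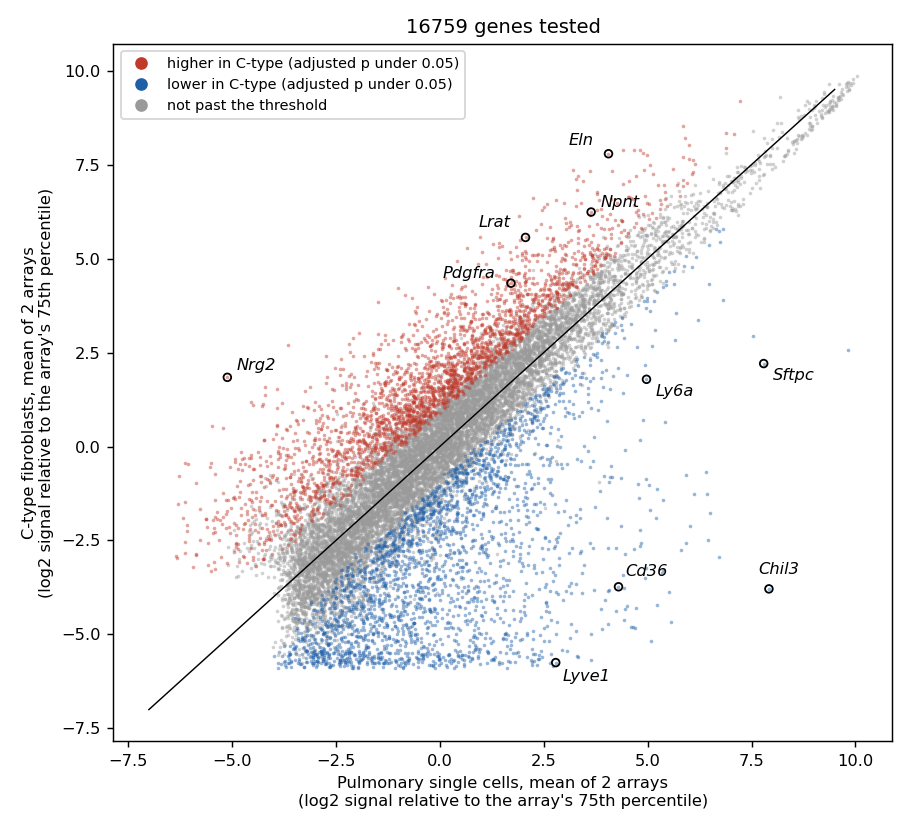
Mean log2 signal in pulmonary single cells (x axis) and in C-type fibroblasts (y axis), relative to the 75th percentile of each array, for the 16759 genes tested. Each point is a gene, the line marks equal signal, and red and blue mark the 2660 higher and 2474 lower genes. Circled names are genes described in the text.

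Of the 8 genes of the sorting panel that were tested, 1 was higher in C, 5 were lower and 2 did not pass. Through the Pu arrays alone, and so only because they were higher there, 3 of the 8 passed the filter. Pdgfra, the receptor for PDGF-A that marks most lung fibroblasts, read 1.82 and 1.6 in Pu and 4.21 and 4.48 in C (6.20-fold higher, log2 difference 2.63 ± 0.27, adjusted p = 0.00056). Both C arrays lay above both Pu arrays, and the A and B types averaged 3.79 and 3.56. Pecam1, which encodes CD31 of endothelial cells, read 3.49 and 3.34 in Pu and -2.74 and -3.98 in C, above background on 1 of the 2 C arrays (109-fold lower, or 90.1-fold with the floor, log2 difference -6.77 ± 0.46, adjusted p = 0.00013). The signal of Ptprc, which encodes the leukocyte antigen CD45, was 1.37 and 1.09 in Pu and -1.13 and -0.52 in C, 4.16-fold lower (log2 difference -2.06 ± 0.33, adjusted p = 0.0038). Lyve1, the hyaluronan receptor of lymphatic endothelium, read 2.75 and 2.83 in Pu and was not well above background on either C array (at least 84.9-fold lower in C, adjusted p = 9.92e-05). Cdh1, E-cadherin of epithelial cells, read -1.51 and -2.16 in Pu and was not well above background on either C array (at least 3.44-fold lower in C, adjusted p = 0.00031). Each of these lineage genes was lower on both C arrays than on both Pu arrays. The signal of Ly6a, which encodes Sca-1, was 4.88 and 5.06 in Pu and 2.96 and 0.61 in C, 9.09-fold lower (log2 difference -3.18 ± 0.68, adjusted p = 0.012). Thy1, a surface glycoprotein of fibroblasts and T cells, read 2.67 and 3.02 in Pu and 1.89 and -1.56 in C and did not pass (log2 difference -2.68 ± 0.96, adjusted p = 0.072). For both, C1 and C2 stood far apart, with C2 further below the suspension than C1. Without C1 the difference was -4.36 for Ly6a and -4.40 for Thy1, which then passed (adjusted p = 0.0011), and without C2 it was -2.01 and -0.96. The A and B types read 6.22 and 6.71 on average for Ly6a. Mcam, which encodes CD146, read 8.81 and 8.96 in Pu and 8.52 and 8.72 in C and did not pass (log2 difference -0.26 ± 0.26, adjusted p = 0.49). Another Mcam probe gave a difference of -2.85, so its 2 probes disagree. Over the fits with 1 array left out, the difference for Pecam1 ran from -7.39 without C1 to -6.15 without C2. Other scalings or corrections ended the call of Cdh1 (adjusted p = 0.18 with normexp correction). Thy1 (adjusted p = 0.0496 with the percentile over probes detected on every array and 0.032 with normexp correction) passed there.

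Most markers of endothelial, epithelial, blood and mesothelial cells were lower in C. Of 15 blood endothelial markers 14 were lower, with a median log2 difference of -4.98 against 0.04 over all genes, and so were 13 of 14 macrophage and dendritic markers (median -7.90), 8 of 9 alveolar type 2 markers (-5.26), 11 of 12 airway markers (-4.77), 9 of 10 tested T and NK cell markers (-5.65), all 5 tested B cell markers (-4.51) and 5 of 6 mesothelial markers (-4.47). Of 7 tested neutrophil, mast cell and basophil markers 6 were lower, of 6 erythroid and platelet markers 5, and of 4 lymphatic endothelial markers 2. Of these lists none had a member called higher. Through the Pu arrays alone, and so only because they were higher there, 6 of the endothelial, 10 of the macrophage, 2 of the type 2, 8 of the airway, 6 of the T and NK cell, 3 of the B cell, 6 of the mesothelial, 5 of the neutrophil, mast cell and basophil, 2 of the erythroid and platelet and 4 of the lymphatic markers passed the filter. The summed scaled signal of the macrophage list was 639.8 and 817 on the Pu arrays and 29.8 and 26.8 on the C arrays (linear, in units of the 75th percentile), that of the airway list 1002 and 928 on the Pu arrays and 8.71 and 5.96 on the C arrays, that of the type 2 list 281 and 304 on the Pu arrays and 19.8 and 12.4 on the C arrays and that of the endothelial list 119 and 167 on the Pu arrays and 12.4 and 14.2 on the C arrays. The sum of the neutrophil, mast and basophil list, 186 and 258 on the Pu arrays, was 161 and 175 on the C arrays, where most of it was Csf3r, which read 7.10 and 7.64 in Pu and 7.33 and 7.45 in C and did not pass (log2 difference 0.02 ± 0.30, adjusted p = 0.97). In bulk samples such as these, fewer cells of a type and less RNA per cell cannot be told apart. Cdh5, the adherens junction cadherin of endothelium, read 4.31 and 4.16 in Pu and -3.41 and -5.36 in C, above background on 1 of the 2 C arrays (393-fold lower, or 201-fold with the floor, log2 difference -8.62 ± 0.79, adjusted p = 0.00036). Foxj1, the regulator of multiciliated cells, read 0.70 and 0.88 in Pu and was not well above background on either C array (at least 21.2-fold lower in C, adjusted p = 0.0014). Gpm6a, a membrane protein of mesothelium, read 1.90 and 1.33 in Pu and was not well above background on either C array (at least 37.5-fold lower in C, adjusted p = 0.00031). The signal of Scgb1a1, the club cell secretoglobin, was 9.89 and 9.73 in Pu and 2.84 and 2.29 in C, 152-fold lower (log2 difference -7.25 ± 0.76, adjusted p = 0.00059). Sftpd, a surfactant protein gene of type 2 cells, read 3.66 and 3.73 in Pu and -2.81 and -2.58 in C (83.9-fold lower, log2 difference -6.39 ± 0.95, adjusted p = 0.0026). Siglecf, a lectin of alveolar macrophages, read 1.77 and 2.73 in Pu and was not well above background on either C array (at least 58.4-fold lower in C, adjusted p = 0.00082). Each was lower on both C arrays than on both Pu arrays. Traces were still read: 12 endothelial markers were above background on C1 and 9 on C2, 10 and 4 of the macrophage markers, and 8 and 7 of the type 2 markers. The part of such RNA in other results was not tested. For Cdh5 the difference was -9.60 without C1 and -7.64 without C2.

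**Figure D2:**
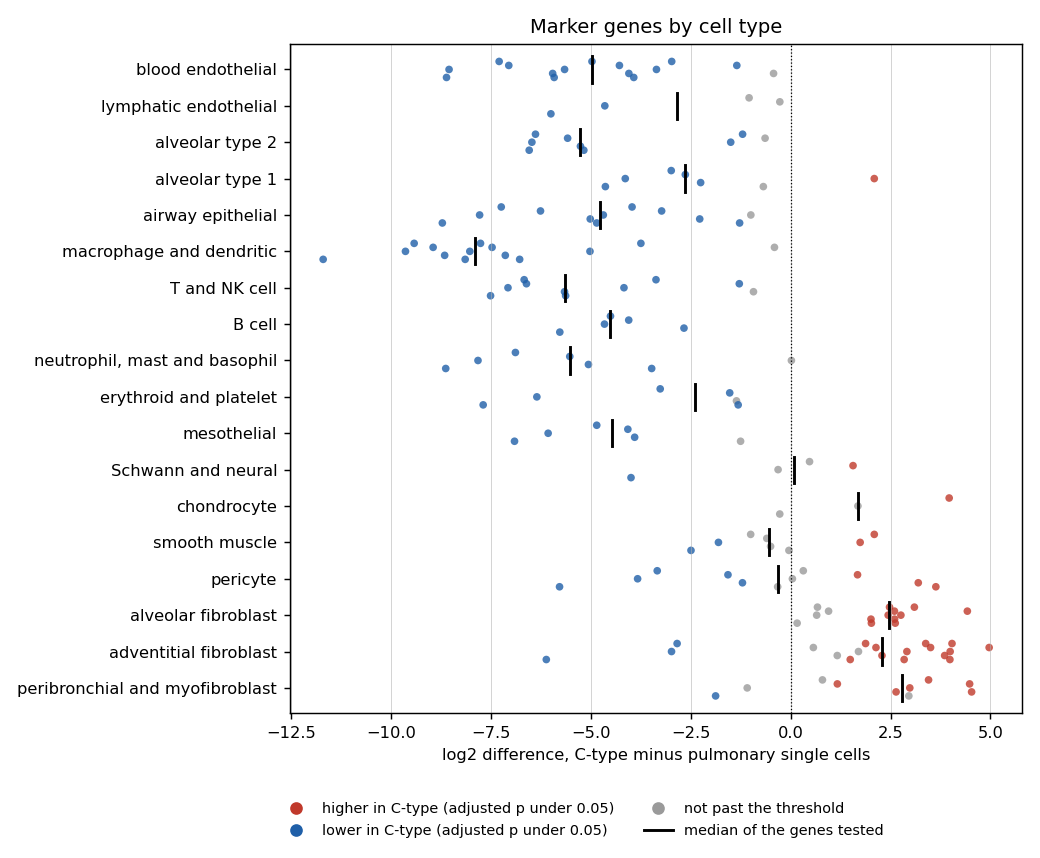
Log2 difference, C-type minus pulmonary single cells (x axis), of each tested gene on 18 lists of cell type markers (y axis), with the median of the list as a black bar. Most endothelial, epithelial, blood and mesothelial markers lie to the left of 0, and most markers of alveolar, adventitial and peribronchial fibroblasts to the right.

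Of 7 alveolar type 1 markers, which are epithelial, 5 were lower and Pdpn was higher. Of the 7, 2 passed the filter through the Pu arrays alone. The signal of Pdpn, podoplanin, which is found on type 1 cells and also on fibroblasts, was -0.95 and -0.30 in Pu and 1.41 and 1.53 in C, 4.26-fold higher (log2 difference 2.09 ± 0.33, adjusted p = 0.0033). Markers of mural cells went both ways. Of 11 pericyte markers, 3 were higher and 5 lower, with 3 that passed the filter through the Pu arrays alone, and of 8 tested smooth muscle markers 2 were higher and 2 lower. The 2 higher smooth muscle markers are not reported here by name. The summed scaled signal of the smooth muscle list was 19.9 and 26.0 on the Pu arrays and 33.3 and 38.2 on the C arrays. Its median log2 difference was -0.55. Trpc6, a cation channel of mural cells, read 0.15 and -0.11 in Pu and was not well above background on either C array (at least 12.4-fold lower in C, adjusted p = 7.83e-05). Notch3, the Notch receptor of pericytes and smooth muscle, read -0.67 and 0.43 in Pu and -2.94 and -4.96 in C, above background on 1 of the 2 C arrays (14.3-fold lower, or 8.35-fold with the floor, log2 difference -3.83 ± 0.66, adjusted p = 0.0051). The signal of Kcnj8, a subunit of an ATP-sensitive potassium channel, was -3.40 and -2.36 in Pu and 1.16 and 0.35 in C, 12.4-fold higher (log2 difference 3.63 ± 0.44, adjusted p = 0.0011). Abcc9, the sulfonylurea receptor that pairs with that channel, read -1.86 and 0.65 in Pu and 2.75 and 2.42 in C (9.15-fold higher, log2 difference 3.19 ± 0.71, adjusted p = 0.014). Myh11, the smooth muscle myosin heavy chain, stood at 0.85 and 0.41 in Pu and at -1.30 and -2.43 in C, 5.64-fold lower (log2 difference -2.50 ± 0.41, adjusted p = 0.0041). Acta2, smooth muscle actin, read 1.37 and 2.30 in Pu and 0.50 and 1.16 in C and did not pass (log2 difference -1.0 ± 0.40, adjusted p = 0.10). Comp, a cartilage and tendon matrix protein, read -1.79 and -1.08 in C and was not well above background on either Pu array (at least 6.38-fold higher in C, adjusted p = 0.00040). It was the only chondrocyte marker of 3 tested that was called, and of 4 tested Schwann and neural markers Ncam1 was higher (1.56) and Mbp lower (-4.0). Of the 3 chondrocyte markers, 1, Comp, passed the filter through the C arrays alone and 1 through the Pu arrays alone. The median of the pericyte list (-0.33) turned to 0.08 with median scaling. With 1 array left out the log2 differences were 1.94 without Pu1 and 4.45 without Pu2 for Abcc9, -4.85 without C1 and -2.82 without C2 for Notch3. No call was made for Abcc9 without C1 (adjusted p = 0.058). Acta2 (adjusted p = 0.040 with the percentile over probes detected on every array) passed there.

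Fibroblast markers were higher in C, and each of the 3 fibroblast lists had most of its members called that way. Of 14 alveolar fibroblast markers 10 were higher and none lower (median 2.46), of 19 tested adventitial markers 13 were higher and 3 lower (2.29), and of 10 peribronchial and myofibroblast markers 6 were higher and 1 lower (2.80), against 15.9% higher and 14.8% lower over all genes. Of the peribronchial list 3 passed the filter through the C arrays alone and 1 through the Pu arrays alone, and of the adventitial list 1 through the Pu arrays alone. The summed scaled signal of the alveolar list was 96.3 and 119 on the Pu arrays and 567 and 609 on the C arrays. Frem1, a basement membrane protein, stood at -2.64 and -2.84 in Pu and at 1.87 and 1.49 in C, 21.5-fold higher (log2 difference 4.42 ± 0.30, adjusted p = 0.00013). The signal of Spon1, a secreted adhesion protein, was 3.28 and 3.50 in Pu and 6.27 and 6.71 in C, 8.56-fold higher (log2 difference 3.10 ± 0.29, adjusted p = 0.00038). Inmt, a methyltransferase abundant in lung fibroblasts, read 5.0 and 4.99 in Pu and 7.77 and 7.74 in C (6.77-fold higher, log2 difference 2.76 ± 0.27, adjusted p = 0.00043). Npnt, nephronectin, the matrix ligand of integrin alpha 8, stood at 3.57 and 3.71 in Pu and at 6.05 and 6.43 in C, 6.05-fold higher (log2 difference 2.60 ± 0.30, adjusted p = 0.00096). The signal of Itga8, that integrin chain, was 2.12 and 2.81 in Pu and 4.89 and 5.28 in C, 6.14-fold higher (log2 difference 2.62 ± 0.34, adjusted p = 0.0016). Tcf21, a transcription factor of lipid-storing lung fibroblasts, read 1.14 and 1.12 in Pu and 3.83 and 3.31 in C (5.43-fold higher, log2 difference 2.44 ± 0.32, adjusted p = 0.0016). All 6 were higher on both C arrays than on both Pu arrays, by 5.43-fold or more. The other 4 markers of the list did not pass, with log2 differences of 0.16 to 0.95.

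Among adventitial markers that were higher, Adh7 differed most. Adh7, an alcohol dehydrogenase that acts on retinol, stood at -1.84 and -2.32 in Pu and at 3.13 and 2.64 in C, 31.3-fold higher (log2 difference 4.97 ± 0.31, adjusted p = 0.00011). The signal of Has1, a hyaluronan synthase, was 1.33 and 1.53 in Pu and 5.53 and 5.31 in C, 15.8-fold higher (log2 difference 3.99 ± 0.27, adjusted p = 0.00014). Serpinf1, a secreted serpin, read 3.57 and 2.98 in Pu and 7.40 and 6.86 in C (14.5-fold higher, log2 difference 3.85 ± 0.33, adjusted p = 0.00027). Dpt, the matrix protein dermatopontin, stood at -1.03 and -0.62 in Pu and at 2.66 and 2.45 in C, 10.4-fold higher (log2 difference 3.38 ± 0.28, adjusted p = 0.00026). The signal of Pi16, a marker of adventitial cells across organs, was 0.06 and 0.32 in Pu and 2.79 and 2.17 in C, 4.88-fold higher (log2 difference 2.29 ± 0.31, adjusted p = 0.0018). Yet 3 adventitial markers were lower. Dpp4, a surface peptidase, read 2.30 and 1.22 in Pu and -3.30 and -5.42 in C, above background on 1 of the 2 C arrays (69.5-fold lower, or 34.8-fold with the floor, log2 difference -6.12 ± 0.68, adjusted p = 0.00076). Ly6c1, a surface protein shared with endothelium and monocytes, stood at 5.59 and 5.74 in Pu and at 3.52 and 2.13 in C, 7.18-fold lower (log2 difference -2.84 ± 0.46, adjusted p = 0.0039). The signal of Sema3c, a secreted guidance cue, was 2.69 and 2.63 in Pu and -0.32 and -0.34 in C, 7.91-fold lower (log2 difference -2.98 ± 0.28, adjusted p = 0.00041). On the A and B arrays, Dpp4 averaged -1.6 and 1.46, Ly6c1 6.85 and 7.39, and Sema3c 1.79 and 3.27. Leaving out 1 array gave log2 differences of -7.18 without C1 and -5.06 without C2 for Dpp4, -3.54 without C1 and -2.15 without C2 for Ly6c1.

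Of the peribronchial and myofibroblast list, the genes furthest above the suspension encode secreted or surface proteins. Pdgfrl, a PDGF receptor-like protein, read -0.46 and -0.11 in Pu and 4.53 and 3.96 in C (23.1-fold higher, log2 difference 4.53 ± 0.32, adjusted p = 0.00016). Aspn, the small proteoglycan asporin, read -3.78 and -3.32 in Pu and 0.91 and 0.95 in C, above background on 1 of the 2 Pu arrays (22.3-fold higher, log2 difference 4.48 ± 0.28, adjusted p = 0.00011). The signal of Hhip, a decoy receptor for hedgehog ligands, was -2.67 and -1.5 in Pu and 0.91 and 0.89 in C, 7.90-fold higher (log2 difference 2.98 ± 0.40, adjusted p = 0.0017). Lgr5, a receptor for R-spondins, read -5.89 and -1.91 in Pu and -1.56 and -0.33 in C and did not pass (log2 difference 2.96 ± 1.14, adjusted p = 0.090). Fgf18, a growth factor of alveolar myofibroblasts, read -0.99 and -1.03 in Pu and -2.05 and -3.73 in C, above background on 1 of the 2 C arrays (3.68-fold lower, or 3.31-fold with the floor, log2 difference -1.88 ± 0.52, adjusted p = 0.032). Fgf18 was thus the member that went the other way. The call was lost for Fgf18 without Pu1 (adjusted p = 0.088) or Pu2 (adjusted p = 0.077) or C2 (adjusted p = 0.069). Over the other 3 arrays the log2 differences were 2.39 without Pu1 and 3.57 without Pu2 for Hhip, -2.72 without C1 and -1.04 without C2 for Fgf18. The call also depended on the scaling or correction for Fgf18 (adjusted p = 0.055 with median scaling and 0.081 with normexp correction). Lgr5 (adjusted p = 0.038 with normexp correction) passed there.

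All 12 tested fibrillar and beaded-filament collagen genes were higher in C (median 3.20), and their summed scaled signal was 58.3 and 80.6 on the Pu arrays and 585 and 698 on the C arrays. The signal of Col1a1, a chain of type I collagen, the main fibre of the interstitium, was 1.98 and 2.69 in Pu and 4.92 and 5.26 in C, 6.77-fold higher (log2 difference 2.76 ± 0.35, adjusted p = 0.0013). Col1a2, the partner chain of type I collagen, read 4.40 and 4.97 in Pu and 7.79 and 7.99 in C (9.22-fold higher, log2 difference 3.21 ± 0.31, adjusted p = 0.00045). Col3a1, the type III collagen of fine reticular fibres, stood at 3.98 and 3.57 in Pu and at 6.68 and 6.84 in C, 7.91-fold higher (log2 difference 2.98 ± 0.28, adjusted p = 0.00039). The signal of Col6a2, a chain of the beaded-filament type VI collagen, was 2.96 and 3.94 in Pu and 6.87 and 7.26 in C, 12.2-fold higher (log2 difference 3.61 ± 0.40, adjusted p = 0.00081). Col16a1, a fibril-associated collagen, read -0.59 and -0.62 in Pu and 3.41 and 3.78 in C (18.3-fold higher, log2 difference 4.20 ± 0.30, adjusted p = 0.00016). Col14a1, another collagen of that class, stood at -2.72 and -0.16 in Pu and at 2.87 and 2.32 in C, 16.4-fold higher (log2 difference 4.04 ± 0.73, adjusted p = 0.0063). In each case both C arrays were above both Pu arrays. Col12a1 (log2 difference 2.18) had another probe that was called the other way, at -1.47, and its brightest probe did not pass without C2 (adjusted p = 0.11). The remaining tested collagens, Col5a1, Col5a2, Col5a3, Col6a1 and Col6a3, differed by 2.90 to 3.78. Arrays left out in turn gave 2.76 without Pu1 and 5.32 without Pu2 for Col14a1, 3.03 without Pu1 and 1.33 without Pu2 for Col12a1, 3.02 without Pu1 and 4.54 without Pu2 for Col5a3, 2.39 without Pu1 and 3.88 without Pu2 for Col6a1.

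Elastic fibre genes moved with them, 16 of 20 higher and none lower (median 2.81). The signal of Eln, tropoelastin, the rubber-like core of the fibre, was 3.64 and 4.47 in Pu and 7.58 and 8.0 in C, 13.3-fold higher (log2 difference 3.73 ± 0.36, adjusted p = 0.00043). Fbln5, a fibulin that guides elastin onto microfibrils, read -0.94 and -0.38 in Pu and 2.65 and 2.60 in C (9.72-fold higher, log2 difference 3.28 ± 0.30, adjusted p = 0.00037). Lox, the enzyme that crosslinks elastin and collagen, stood at 0.83 and 0.09 in Pu and at 3.70 and 3.74 in C, 9.58-fold higher (log2 difference 3.26 ± 0.32, adjusted p = 0.00048). The signal of Fbn1, fibrillin of the microfibril, was 0.51 and 1.78 in Pu and 4.35 and 4.67 in C, 10.3-fold higher (log2 difference 3.36 ± 0.43, adjusted p = 0.0014). Ltbp4, a latent TGF-beta binding protein needed for elastic fibres, read 3.36 and 4.18 in Pu and 6.32 and 6.28 in C (5.77-fold higher, log2 difference 2.53 ± 0.35, adjusted p = 0.0020). Fbln1, a fibulin of elastic fibres and basement membranes, stood at 2.62 and 4.03 in Pu and at 7.13 and 7.26 in C, 14.6-fold higher (log2 difference 3.87 ± 0.45, adjusted p = 0.00096). Each was higher on both C arrays than on both Pu arrays. The other 4 genes did not pass, with log2 differences from -0.68 to 1.32. Of 17 genes for collagen processing and crosslinking 12 were higher and none lower (median 2.02). The signal of Adamts2, the procollagen N-proteinase, was -0.05 and 0.69 in Pu and 4.08 and 3.81 in C, 12.4-fold higher (log2 difference 3.63 ± 0.34, adjusted p = 0.00038). Plod2, a lysyl hydroxylase, read -2.63 and -1.32 in Pu and 1.71 and 1.58 in C (12.3-fold higher, log2 difference 3.62 ± 0.44, adjusted p = 0.0011). Removing 1 array gave log2 differences of 2.72 without Pu1 and 4.0 without Pu2 for Fbn1, 3.17 without Pu1 and 4.57 without Pu2 for Fbln1, 2.96 without Pu1 and 4.27 without Pu2 for Plod2.

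Small leucine-rich proteoglycans, which coat collagen fibrils and set their width, were higher for 8 of 10 tested genes and lower for 1 (median 2.97). 1 of the tested genes passed the filter through the C arrays alone. Bgn, biglycan, stood at 4.57 and 5.08 in Pu and at 7.78 and 8.0 in C, 8.39-fold higher (log2 difference 3.07 ± 0.31, adjusted p = 0.00052). The signal of Dcn, decorin, was 3.12 and 3.16 in Pu and 6.62 and 5.33 in C, 7.12-fold higher (log2 difference 2.83 ± 0.43, adjusted p = 0.0029). Lum, lumican, read -1.79 and -0.84 in Pu and 3.73 and 2.19 in C (19.3-fold higher, log2 difference 4.27 ± 0.55, adjusted p = 0.0015). Omd, osteomodulin, stood at -3.47 and -3.75 in Pu and at 0.87 and 0.21 in C, 17.7-fold higher (log2 difference 4.14 ± 0.33, adjusted p = 0.00021). The signal of Chad, chondroadherin, the member that was lower, was -1.38 and -1.67 in Pu and -3.41 and -3.10 in C, 3.32-fold lower (log2 difference -1.73 ± 0.40, adjusted p = 0.016). The threshold was missed by Chad without Pu1 (adjusted p = 0.054) or C1 (adjusted p = 0.064). For Dcn and Lum, C1 read higher than C2, yet both arrays lay above the suspension. When 1 array was omitted, the log2 differences became 2.19 without C1 and 3.48 without C2 for Dcn, 3.50 without C1 and 5.04 without C2 for Lum. Under another scaling or correction no call was made for Chad (adjusted p = 0.051 with median scaling, 0.053 with quantile scaling and 0.14 with normexp correction).

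Of 24 tested basement membrane genes, 16 were higher and 2 lower (median 2.48). 2 of the tested genes passed the filter through the C arrays alone and 1 through the Pu arrays alone. Lamc3, the laminin gamma 3 chain, read -5.12 and -3.89 in Pu and 1.16 and 1.04 in C, above background on 1 of the 2 Pu arrays (48.8-fold higher, or 31.0-fold with the floor, log2 difference 5.61 ± 0.47, adjusted p = 0.00026). Col4a6, a type IV collagen chain, stood at -3.13 and -1.69 in Pu and at 1.91 and 1.91 in C, 19.9-fold higher (log2 difference 4.32 ± 0.46, adjusted p = 0.00064). The signal of Col4a5, its partner chain, was -2.19 and -1.46 in Pu and 2.26 and 2.56 in C, 18.9-fold higher (log2 difference 4.24 ± 0.33, adjusted p = 0.00020). Col15a1, a collagen that links basement membrane to fibrils, read -2.27 and -2.45 in Pu and 1.67 and 1.6 in C (15.9-fold higher, log2 difference 3.99 ± 0.28, adjusted p = 0.00015). Lama2, the laminin chain of mesenchymal basement membranes, stood at 1.6 and 2.12 in Pu and at 5.11 and 5.01 in C, 9.22-fold higher (log2 difference 3.20 ± 0.29, adjusted p = 0.00034). The 2 lower genes were Lama5 and Col4a3. The signal of Lama5, the laminin chain of epithelial and endothelial basement membranes, was 0.87 and 2.08 in Pu and -0.60 and -0.20 in C, 3.65-fold lower (log2 difference -1.87 ± 0.43, adjusted p = 0.016). Col4a3, a type IV collagen chain of the alveolar basement membrane, read -1.95 and -1.65 in Pu and -3.38 and -3.32 in C, above background on 1 of the 2 C arrays (2.93-fold lower, log2 difference -1.55 ± 0.32, adjusted p = 0.011). Of the main type IV chains, Col4a1 was higher by 1.28 ± 0.28 on the log2 scale (adjusted p = 0.013) and Col4a2 did not pass, with a difference of 0.15 ± 0.34 (adjusted p = 0.77). A call was missing for Lama5 without C1 (adjusted p = 0.067). With 1 array left out the log2 differences were 4.99 without Pu1 and 6.22 without Pu2 for Lamc3, 3.60 without Pu1 and 5.04 without Pu2 for Col4a6, -2.47 without Pu1 and -1.26 without Pu2 for Lama5. Other scalings or corrections ended the call of Col4a3 (adjusted p = 0.30 with normexp correction and 0.050 with the authors' table) and Lama5 (adjusted p = 0.058 with median scaling).

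Of 23 tested matrix proteases and inhibitors, 14 were higher and 4 lower (median 2.24). 2 of the tested genes passed the filter through the C arrays alone and 3 through the Pu arrays alone. Mmp3, stromelysin, stood at 0.33 and 1.58 in Pu and at 5.62 and 5.54 in C, 24.7-fold higher (log2 difference 4.63 ± 0.41, adjusted p = 0.00033). The signal of Mmp2, a gelatinase of mesenchymal cells, was 1.14 and 1.40 in Pu and 5.17 and 5.62 in C, 17.4-fold higher (log2 difference 4.12 ± 0.30, adjusted p = 0.00016). Timp1, an inhibitor of these enzymes, read -3.83 and -2.22 in Pu and 0.89 and 1.07 in C, above background on 1 of the 2 Pu arrays (16.1-fold higher, or 16.0-fold with the floor, log2 difference 4.01 ± 0.52, adjusted p = 0.0016). Plat, tissue plasminogen activator, stood at -1.09 and -0.41 in Pu and at 3.22 and 3.29 in C, 16.1-fold higher (log2 difference 4.01 ± 0.31, adjusted p = 0.00020). The signal of Adamts15, a proteoglycan-cleaving protease, was 0.55 and 0.26 in Pu and 3.69 and 4.25 in C, 11.8-fold higher (log2 difference 3.56 ± 0.31, adjusted p = 0.00028). The 4 lower genes were Mmp8, Mmp9 and Mmp12, enzymes known from neutrophils and macrophages, and Plau, urokinase. Mmp12, the macrophage elastase, read 1.45 and 1.75 in Pu and was not well above background on either C array (at least 37.2-fold lower in C, adjusted p = 0.00043). Mmp9, a gelatinase of leukocytes, read -0.34 and -0.48 in Pu and was not well above background on either C array (at least 9.25-fold lower in C, adjusted p = 8.10e-05). The signal of Mmp8, the neutrophil collagenase, was 1.77 and 1.06 in Pu and -2.68 and -2.57 in C, 16.5-fold lower (log2 difference -4.04 ± 0.58, adjusted p = 0.0024). Markers of macrophages fell on the same arrays, as given above, and their part here was not tested. Leaving out 1 array gave log2 differences of 4.0 without Pu1 and 5.25 without Pu2 for Mmp3, 3.20 without Pu1 and 4.81 without Pu2 for Timp1, -5.67 without C1 and -7.45 without C2 for Mmp12, -5.37 without C1 and -2.80 without C2 for Plau.

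Integrins, the receptors that tie cells to this matrix, went both ways, with 7 of 21 tested chains higher and 9 lower. 1 of the tested genes passed the filter through the C arrays alone and 5 through the Pu arrays alone. Those higher were Itgbl1, a secreted relative of the beta chains (4.62), Itga11, a collagen receptor chain (3.21), Itga8 (2.62), Itgb5 (2.13), Itgav (2.03), Itgb8 (1.97) and Itga9 (1.32, adjusted p = 0.067 without C2). Itgav pairs with Itgb5 and with Itgb8 to bind latent TGF-beta or vitronectin. Itgb2, the leukocyte beta chain, read 6.07 and 6.15 in Pu and -1.43 and -1.08 in C (165-fold lower, log2 difference -7.37 ± 0.31, adjusted p = 4.12e-05). Itga4, an alpha chain of lymphocytes and monocytes, read 1.14 and 1.59 in Pu and was not well above background on either C array (at least 31.7-fold lower in C, adjusted p = 8.11e-05). Itga1, a collagen and laminin receptor chain of mural and endothelial cells, read 1.66 and 1.64 in Pu and -2.86 and -3.35 in C, above background on 1 of the 2 C arrays (27.0-fold lower, log2 difference -4.76 ± 0.29, adjusted p = 9.38e-05). Itgb1, the beta chain shared by most matrix receptors, read 4.34 and 3.01 in Pu and 4.40 and 4.50 in C and did not pass (log2 difference 0.77 ± 0.43, adjusted p = 0.22). With 1 array left out the log2 differences for Itga11 were 2.23 without Pu1 and 4.18 without Pu2.

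**Figure D3:**
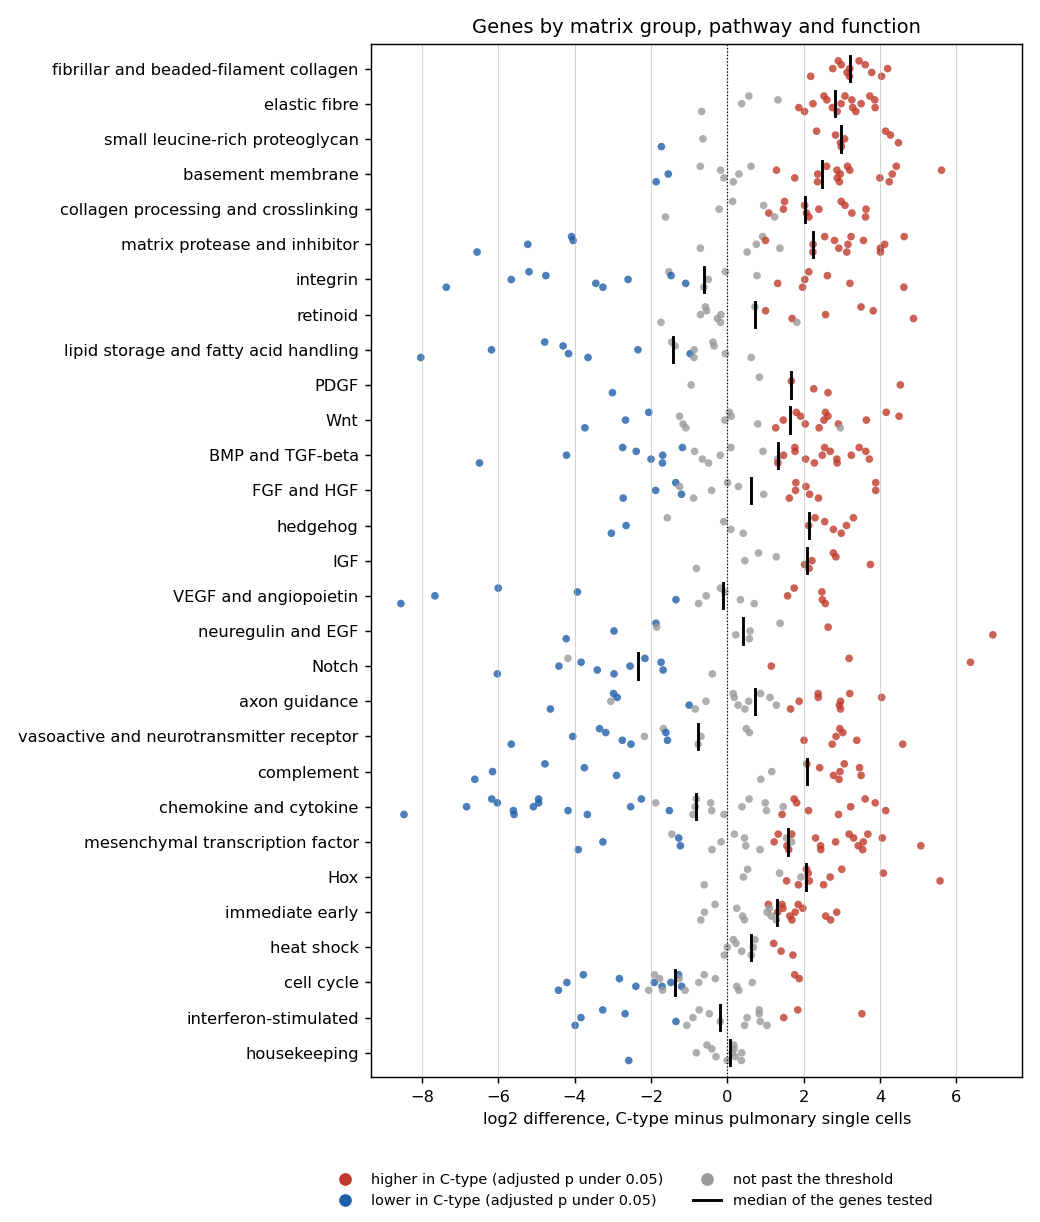
Log2 difference, C-type minus pulmonary single cells (x axis), of each tested gene on 29 lists by matrix group, pathway and function (y axis), with the median of the list as a black bar. All 12 tested collagen genes lie to the right of 0, and the medians of the Notch, lipid and cell cycle lists lie to the left of it.

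Vitamin A reaches cells bound to the carrier Rbp4 and is stored inside them as esters made by Lrat; for use it is oxidised by Rdh10 and the Aldh1a enzymes to retinoic acid, which acts through nuclear receptors of the RAR and RXR families. Of 15 tested genes of this system 6 were higher in C and none was called lower, and the 6 were carriers and enzymes (median of the list 0.72). 2 of the tested genes passed the filter through the Pu arrays alone. Rbp4 stood at -1.27 and -0.40 in Pu and at 4.16 and 3.92 in C, 29.3-fold higher (log2 difference 4.87 ± 0.35, adjusted p = 0.00016). The signal of Lrat was 2.41 and 1.71 in Pu and 5.45 and 5.67 in C, 11.3-fold higher (log2 difference 3.50 ± 0.32, adjusted p = 0.00037). Rdh10 read -2.44 and -1.65 in Pu and 0.91 and 0.13 in C (5.94-fold higher, log2 difference 2.57 ± 0.44, adjusted p = 0.0047). Aldh1a1, the retinaldehyde dehydrogenase higher here, stood at 5.54 and 4.96 in Pu and at 6.84 and 7.05 in C, 3.24-fold higher (log2 difference 1.69 ± 0.31, adjusted p = 0.0062). In a limma fit of the 4 compared arrays alone, Aldh1a1 did not pass (adjusted p = 0.062). Dhrs3, which turns retinaldehyde back to retinol, was higher by 1.0 ± 0.27 (adjusted p = 0.030), but not without C2 (adjusted p = 0.10). Aldh1a2, a related dehydrogenase, read -0.25 and -0.34 in Pu and -1.04 and -3.04 in C and did not pass (log2 difference -1.74 ± 0.59, adjusted p = 0.062). Without C1 Aldh1a2 differed by -2.74 and passed (adjusted p = 0.0029), and without C2 the difference was -0.74. It also passed with a trended robust variance (adjusted p = 0.044). The call also depended on the scaling or correction for Dhrs3 (adjusted p = 0.092 with the percentile over probes detected on every array and 0.092 with quantile scaling). Aldh1a2 (adjusted p = 0.035 with the percentile over probes detected on every array) passed there.

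None of the receptor genes passed. Rarb is a well-known target of retinoic acid and carries a direct repeat for its own receptor before its start, shown here because the gene is the pathway's usual readout. Of the 12 genes of this list with a promoter in the RefSeq table (GRCm38.p6), it was the only one with the letters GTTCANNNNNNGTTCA on either strand in the 250 bases before the start, and 22 of 32851 promoters (0.067%) held them. The stretch lies at chr14:16575477-16575578 on the minus strand, with the repeat in capitals from 52 bases before the start.
Rarb: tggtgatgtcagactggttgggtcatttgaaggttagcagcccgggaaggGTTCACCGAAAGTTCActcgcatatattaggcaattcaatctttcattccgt
Rarb read -0.23 and -1.83 in Pu and -1.95 and -1.51 in C and did not pass (log2 difference -0.71 ± 0.53, adjusted p = 0.35).

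Lipid storage went the other way. Of 16 tested genes for lipid droplets and fatty acid handling 8 were lower in C and none was higher (median -1.41). 3 of the tested genes passed the filter through the Pu arrays alone. Plin2, the coat protein of lipid droplets in lipofibroblasts and in many other cells, stood at 3.37 and 3.05 in Pu and at 0.86 and 0.87 in C, 5.08-fold lower (log2 difference -2.34 ± 0.29, adjusted p = 0.0012). The signal of Pparg, the nuclear receptor that drives lipid storage, also abundant in alveolar macrophages, was 1.82 and 2.86 in Pu and -1.70 and -1.95 in C, 17.9-fold lower (log2 difference -4.16 ± 0.38, adjusted p = 0.00036). Cd36, a fatty acid transporter of endothelium and macrophages, read 4.48 and 4.12 in Pu and -3.12 and -4.34 in C, above background on 1 of the 2 C arrays (262-fold lower, or 190.2-fold with the floor, log2 difference -8.03 ± 0.67, adjusted p = 0.00027). Fabp4, a fatty acid binding protein of capillary endothelium and macrophages, read 2.08 and 1.80 in Pu and -1.73 and -3.97 in C, above background on 1 of the 2 C arrays (27.6-fold lower, or 22.9-fold with the floor, log2 difference -4.79 ± 0.67, adjusted p = 0.0021). Fabp1, a related binding protein, read 0.92 and 1.28 in Pu and was not well above background on either C array (at least 26.3-fold lower in C, adjusted p = 0.00058). Lpl, lipoprotein lipase, read 3.46 and 3.14 in Pu and 2.35 and 2.30 in C (1.97-fold lower, log2 difference -0.98 ± 0.27, adjusted p = 0.033). Lpl did not pass without C1 (adjusted p = 0.074) or without C2 (0.089). The other 8 tested genes did not pass, with log2 differences from -1.46 to 0.62. Several of these genes are shared with macrophages and endothelium, whose marker sums fell as given above, and their part in the result was not tested. On the A and B arrays Plin2 averaged 0.52 and 0.14 and Pparg -0.95 and -0.87. Over the other 3 arrays the log2 differences were -8.64 without C1 and -7.42 without C2 for Cd36, -5.91 without C1 and -3.67 without C2 for Fabp4. Under another scaling or correction no call was made for Lpl (adjusted p = 0.18 with median scaling).

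**Figure D4:**
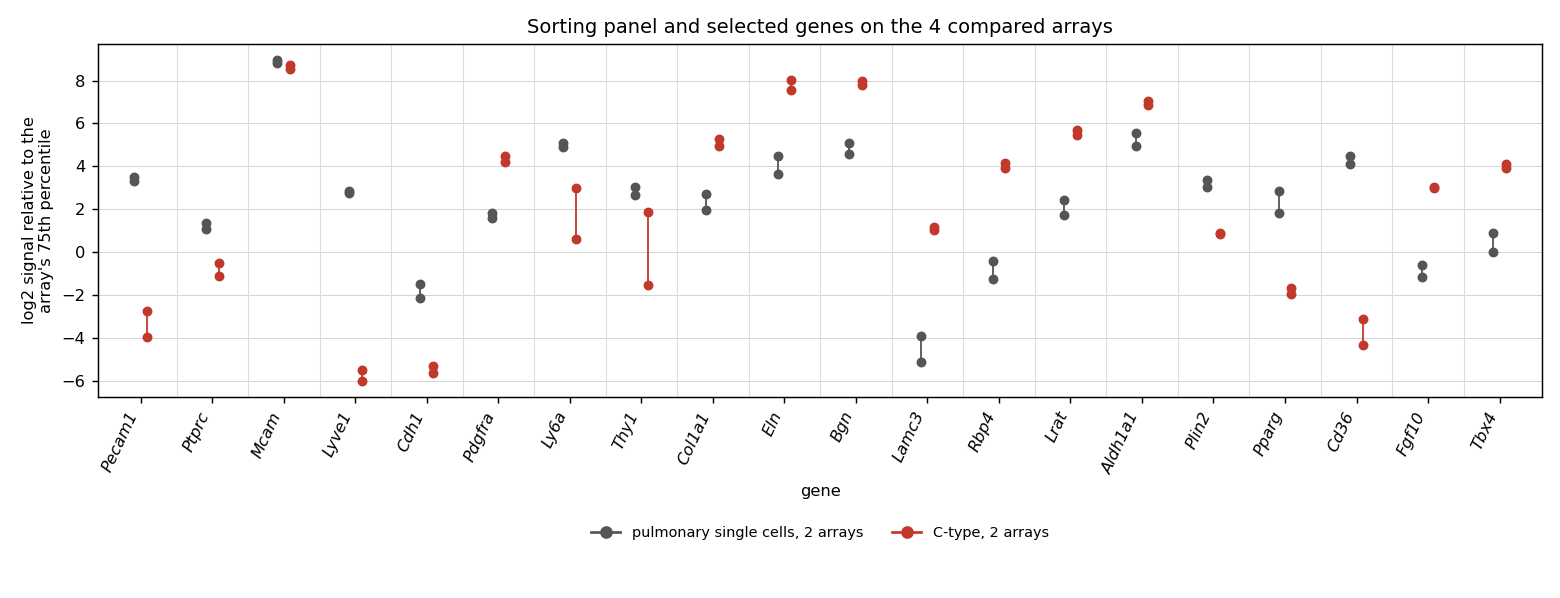
Log2 signal relative to the 75th percentile of the array (y axis) for the 8 tested genes of the sorting panel and 12 selected genes (x axis), with both Pu arrays in grey and both C arrays in red. Ly6a and Thy1 have C arrays far apart, and from Col1a1 to Aldh1a1 both C arrays lie above both Pu arrays.

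Of 18 tested genes of the FGF and HGF pathways, through which fibroblasts signal to the epithelium, 8 were higher and 4 lower. 3 of the tested genes passed the filter through the Pu arrays alone. Fgf10, the mesenchymal ligand that drives lung budding and maintains epithelial progenitors, stood at -1.15 and -0.61 in Pu and at 3.02 and 2.99 in C, 14.8-fold higher (log2 difference 3.89 ± 0.29, adjusted p = 0.00018). The signal of Fgf7, keratinocyte growth factor, a mitogen of type 2 cells, was -1.36 and 0.13 in Pu and 3.34 and 3.19 in C, 14.8-fold higher (log2 difference 3.88 ± 0.47, adjusted p = 0.0012). Hgf, a ligand of epithelium and endothelium, read -0.22 and -1.59 in Pu and 1.26 and 1.70 in C (5.23-fold higher, log2 difference 2.39 ± 0.47, adjusted p = 0.0091). Met, its receptor, read -0.96 and -1.51 in Pu and was not well above background on either C array (at least 5.22-fold lower in C, adjusted p = 0.00074). The signal of Spry1, a feedback inhibitor of FGF signalling, was 0.31 and 0.11 in Pu and 2.32 and 2.40 in C, 4.45-fold higher (log2 difference 2.15 ± 0.28, adjusted p = 0.0015). Thus Fgf10, Fgf7 and Hgf were higher on both C arrays, whereas the ligand Fgf18, given above, was called lower (-1.88). Arrays left out in turn gave 3.14 without Pu1 and 4.63 without Pu2 for Fgf7, 3.07 without Pu1 and 1.70 without Pu2 for Hgf, -2.72 without C1 and -1.04 without C2 for Fgf18. No call was made for Fgf18 without Pu1 (adjusted p = 0.088) or Pu2 (adjusted p = 0.077) or C2 (adjusted p = 0.069). Other scalings or corrections ended the call of Met (adjusted p = 0.079 with normexp correction).

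In the PDGF pathway, which recruits mesenchymal cells, 4 of 7 genes were higher and 1 lower. The receptors Pdgfra and Pdgfrb were higher (2.63 and 1.67), as were the ligand Pdgfd (2.26) and Pdgfrl. Pdgfb, the ligand known from endothelium and platelets, read -0.66 and 1.15 in Pu and -2.45 and -3.08 in C (8.07-fold lower, log2 difference -3.01 ± 0.60, adjusted p = 0.0093). Neither Pdgfb nor Pdgfrb passed without C2 (adjusted p = 0.051 and 0.089), and for Pdgfb the log2 difference was -3.92 without Pu1 and -2.11 without Pu2. Of 10 insulin-like growth factor genes 6 were higher and none lower (median 2.08). Igf1, the growth factor itself, stood at -0.04 and 0.33 in Pu and at 3.59 and 4.20 in C, 13.4-fold higher (log2 difference 3.74 ± 0.32, adjusted p = 0.00027). The signal of Igfbp4, a binding protein that holds it, was 0.87 and 0.31 in Pu and 3.76 and 3.11 in C, 7.16-fold higher (log2 difference 2.84 ± 0.35, adjusted p = 0.0012). Igfbp6, a binding protein with preference for IGF2, read 2.81 and 2.57 in Pu and 5.59 and 5.34 in C (6.84-fold higher, log2 difference 2.77 ± 0.30, adjusted p = 0.00068). Igf2, the second ligand, stood at -1.99 and -2.59 in Pu and at 0.21 and -0.37 in C, 4.64-fold higher (log2 difference 2.21 ± 0.38, adjusted p = 0.0052). Both C arrays lay above both Pu arrays for each of these.

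Of 24 tested Wnt pathway genes 13 were higher and 3 lower (median 1.63). 4 of the tested genes passed the filter through the C arrays alone and 2 through the Pu arrays alone. Wnt9a, a ligand, read -4.15 and -3.23 in Pu and 0.52 and 0.41 in C, above background on 1 of the 2 Pu arrays (17.9-fold higher, or 15.9-fold with the floor, log2 difference 4.16 ± 0.35, adjusted p = 0.00027). Wnt2b, another ligand of mesenchyme, read -0.65 and -0.02 in Pu and 2.14 and 2.24 in C (5.78-fold higher, log2 difference 2.53 ± 0.31, adjusted p = 0.0013). Fzd2, a receptor, stood at -0.54 and -0.31 in Pu and at 3.40 and 3.03 in C, 12.5-fold higher (log2 difference 3.64 ± 0.34, adjusted p = 0.00038). The signal of Fzd1, a second receptor, was -0.78 and -0.39 in Pu and 2.07 and 2.03 in C, 6.20-fold higher (log2 difference 2.63 ± 0.28, adjusted p = 0.00061). Axin2, a feedback target of canonical Wnt signalling, read -1.62 and -0.04 in Pu and 1.68 and 1.80 in C (5.93-fold higher, log2 difference 2.57 ± 0.49, adjusted p = 0.0078). Dkk3, a secreted Dickkopf relative, stood at -0.59 and 0.12 in Pu and at 2.58 and 2.76 in C, 7.49-fold higher (log2 difference 2.91 ± 0.32, adjusted p = 0.00076). The signal of Sfrp1, a secreted Wnt binder, was -2.18 and -2.31 in Pu and 0.20 and 0.11 in C, 5.29-fold higher (log2 difference 2.40 ± 0.27, adjusted p = 0.00076). Wif1, a secreted inhibitor, read -6.03 and -4.08 in Pu and -1.01 and -0.10 in C, above background on 1 of the 2 Pu arrays (22.6-fold higher, or 10.5-fold with the floor, log2 difference 4.50 ± 1.16, adjusted p = 0.025). Sfrp2, of the same family as Sfrp1, was lower (-2.06), and so were Lef1 and Tcf7, transcription factors that T cells also express (-3.73 and -2.67). The T and NK cell marker sum was 49.0 and 91.8 on the Pu arrays and 6.70 and 7.60 on the C arrays. Its part here was not tested. The call was lost for Wif1 without Pu1 (adjusted p = 0.12) or C1 (adjusted p = 0.057) or C2 (adjusted p = 0.11), Lef1 without Pu1 (adjusted p = 0.14) or C1 (adjusted p = 0.13) or C2 (adjusted p = 0.064), Tcf7 without Pu1 (adjusted p = 0.076). Removing 1 array gave log2 differences of 1.78 without Pu1 and 3.36 without Pu2 for Axin2, 3.52 without Pu1 and 5.47 without Pu2 for Wif1, -2.83 without Pu1 and -4.64 without Pu2 for Lef1, -3.68 without C1 and -1.66 without C2 for Tcf7.

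BMP and TGF-beta genes were higher for 15 of 30 tested and lower for 8 (median 1.32), with ligands in both sets. 1 of the tested genes passed the filter through the C arrays alone and 3 through the Pu arrays alone. Tgfb3, a TGF-beta ligand, stood at 0.10 and 0.95 in Pu and at 4.07 and 4.41 in C, 13.2-fold higher (log2 difference 3.72 ± 0.36, adjusted p = 0.00044). Bmp7, a BMP ligand, read -4.21 and -3.92 in Pu and -0.11 and -0.77 in C, above background on 1 of the 2 Pu arrays (12.3-fold higher, or 10.7-fold with the floor, log2 difference 3.62 ± 0.35, adjusted p = 0.00041). Bmp5, another ligand of that family, read -0.42 and -0.62 in Pu and 2.94 and 2.52 in C (9.48-fold higher, log2 difference 3.25 ± 0.29, adjusted p = 0.00032). Gdf10, a ligand of lung mesenchyme, stood at -1.57 and -1.56 in Pu and at 1.41 and 1.19 in C, 7.29-fold higher (log2 difference 2.87 ± 0.27, adjusted p = 0.00038). The signal of Bmp4, a ligand of lung mesenchyme that limits epithelial growth, was 2.55 and 2.31 in Pu and 4.47 and 4.95 in C, 4.85-fold higher (log2 difference 2.28 ± 0.29, adjusted p = 0.0015). Bmpr1a, a type I BMP receptor, read 0.30 and 0.86 in Pu and 3.12 and 3.13 in C (5.84-fold higher, log2 difference 2.55 ± 0.31, adjusted p = 0.0011). Tgfb1, the TGF-beta that leukocytes also make, stood at -1.12 and 0.46 in Pu and at -3.03 and -3.12 in C, 6.70-fold lower (log2 difference -2.74 ± 0.51, adjusted p = 0.0071). Bmp6, a ligand of endothelium and macrophages, read 2.45 and 2.88 in Pu and was not well above background on either C array (at least 68.9-fold lower in C, adjusted p = 0.00016). Smad6, an inhibitory Smad known from endothelium, read -1.27 and -1.49 in Pu and was not well above background on either C array (at least 4.71-fold lower in C, adjusted p = 0.00078). Besides these, Bmp3 and Inhba were higher (2.69 and 2.48), and Eng and Bmpr2, receptors known from endothelium, were lower (-2.00 and -1.70). Bmpr2 did not pass in a limma fit of the 4 compared arrays alone (adjusted p = 0.065). For Tgfb1 the log2 difference was -3.53 without Pu1 and -1.96 without Pu2. The call also depended on the scaling or correction for Smad6 (adjusted p = 0.062 with normexp correction).

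Hedgehog ligands come from epithelium and act on mesenchyme, which carries the receptor Ptch1 and the Gli transcription factors. Of 13 genes 7 were higher and 2 lower (median 2.13). 1 of the tested genes passed the filter through the C arrays alone and 3 through the Pu arrays alone. Ptch1, receptor and feedback target, stood at -0.66 and -0.92 in Pu and at 1.88 and 2.10 in C, 6.85-fold higher (log2 difference 2.78 ± 0.28, adjusted p = 0.00050). The signal of Gli1, the transcription factor that reports pathway activity, was -1.33 and -1.02 in Pu and 1.16 and 1.09 in C, 4.91-fold higher (log2 difference 2.29 ± 0.27, adjusted p = 0.0010). Gli2, its activator relative, read -0.61 and -1.12 in C and was not well above background on either Pu array (at least 8.65-fold higher in C, adjusted p = 0.00037). Gas1, a co-receptor, stood at 1.21 and 1.95 in Pu and at 4.62 and 4.78 in C, 8.68-fold higher (log2 difference 3.12 ± 0.32, adjusted p = 0.00057). Dhh, a ligand, read -1.49 and -1.25 in Pu and was not well above background on either C array (at least 4.75-fold lower in C, adjusted p = 0.0060). Shh, the ligand of airway epithelium, read -3.67 and -2.19 in Pu and was not well above background on either C array (at least 1.61-fold lower in C, adjusted p = 0.0066). So these receptors and responders were higher and the ligands Dhh and Shh lower. For Shh the log2 difference was -3.40 without Pu1 and -1.91 without Pu2. Under another scaling or correction no call was made for Dhh (adjusted p = 0.071 with normexp correction) and Shh (adjusted p = 0.49 with normexp correction).

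Notch pathway genes were mostly lower, 9 of 14 tested, with 3 higher (median -2.36). 1 of the tested genes passed the filter through the C arrays alone and 5 through the Pu arrays alone. Notch4, the endothelial receptor, read 1.48 and 1.43 in Pu and was not well above background on either C array (at least 33.7-fold lower in C, adjusted p = 0.00030). Jag2, a ligand, read -1.98 and -0.72 in Pu and was not well above background on either C array (at least 4.81-fold lower in C, adjusted p = 0.00074). Hey1, a target gene, read 3.47 and 3.23 in Pu and 0.97 and 0.63 in C (5.86-fold lower, log2 difference -2.55 ± 0.27, adjusted p = 0.00067). Heyl, a target gene and regulator of mural and mesenchymal cells, stood at -0.55 and -0.17 in Pu and at 3.03 and 2.63 in C, 9.11-fold higher (log2 difference 3.19 ± 0.29, adjusted p = 0.00036). Dner, a transmembrane Notch ligand relative of neurons, read -2.74 and -4.59 in Pu and 2.72 and 2.69 in C, above background on 1 of the 2 Pu arrays (82.5-fold higher, or 77.5-fold with the floor, log2 difference 6.37 ± 0.55, adjusted p = 0.00030). Notch1 and Dll4 were also called lower (-2.16 and -1.74). The threshold was missed by Notch1 without Pu1 (adjusted p = 0.16) or C1 (adjusted p = 0.17) or C2 (adjusted p = 0.062), Dll4 without Pu1 (adjusted p = 0.054) or C1 (adjusted p = 0.058) or C2 (adjusted p = 0.053). The endothelial marker sum moved in the same direction, and its part was not tested. When 1 array was omitted, the log2 differences became -5.04 without Pu1 and -3.79 without Pu2 for Jag2, 7.29 without Pu1 and 5.44 without Pu2 for Dner, -1.33 without Pu1 and -2.99 without Pu2 for Notch1. Other scalings or corrections ended the call of Dll4 (adjusted p = 0.12 with normexp correction) and Notch1 (adjusted p = 0.057 with median scaling and 0.053 with quantile scaling).

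Of 16 tested VEGF and angiopoietin genes 5 were higher and 5 lower, and the sets differed by role. The lower genes were all receptors of endothelium: Tie1, Flt1, Flt4, Tek and Kdr. 3 genes of the list passed the filter through the Pu arrays alone. Flt1, a VEGF receptor, read 2.05 and 2.94 in Pu and was not well above background on either C array (at least 69.3-fold lower in C, adjusted p = 0.00012). Tek, the angiopoietin receptor, stood at 2.35 and 1.80 in Pu and at -1.39 and -2.32 in C, 15.2-fold lower (log2 difference -3.93 ± 0.39, adjusted p = 0.00046). Kdr had a log2 difference of -1.35 at its brightest probe and no call without C1 (adjusted p = 0.059). The higher genes were ligands or co-receptors. The signal of Angpt1, the activating ligand of Tek, made by perivascular cells, was 2.36 and 1.25 in Pu and 4.34 and 4.24 in C, 5.60-fold higher (log2 difference 2.49 ± 0.39, adjusted p = 0.0033). Angpt2, its context-dependent relative, read -0.45 and 0.62 in Pu and 2.43 and 2.86 in C (5.91-fold higher, log2 difference 2.56 ± 0.42, adjusted p = 0.0039). Vegfd, a lymphatic growth factor, stood at 0.20 and 0.49 in Pu and at 2.87 and 2.77 in C, 5.56-fold higher (log2 difference 2.47 ± 0.29, adjusted p = 0.0010). Nrp2, a co-receptor, was higher by 1.58. The call also depended on the scaling or correction for Kdr (adjusted p = 0.095 with median scaling).

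Among neuregulin and EGF genes, 2 of 10 tested were higher and 3 lower, against 15.9% and 14.8% over all genes. 2 of the tested genes passed the filter through the C arrays alone and 3 through the Pu arrays alone. Nrg2, a neuregulin, read 1.45 and 2.24 in C and was not well above background on either Pu array (at least 61.8-fold higher in C, adjusted p = 0.00012). Another Nrg2 probe gave a log2 difference of 1.59. Egfr, the EGF receptor, read 0.92 and 0.68 in Pu and 3.76 and 3.12 in C (6.23-fold higher, log2 difference 2.64 ± 0.31, adjusted p = 0.0011). Areg, amphiregulin, a ligand of that receptor, read -1.40 and -1.33 in Pu and was not well above background on either C array (at least 4.77-fold lower in C, adjusted p = 0.0013). The signal of Hbegf, another ligand, was 0.23 and 1.21 in Pu and -1.14 and -1.16 in C, 3.66-fold lower (log2 difference -1.87 ± 0.37, adjusted p = 0.0086). Erbb3, a receptor of epithelium, was not well above background on either C array and was called lower (adjusted p = 0.010), but not without Pu2 (adjusted p = 0.051), with log2 differences of -3.30 without C1 and -5.15 without C2. Under another scaling or correction no call was made for Areg (adjusted p = 0.055 with normexp correction).

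Axon guidance molecules, which also steer vessels and mesenchymal cells, were higher for 9 of 24 genes and lower for 4. Over all genes 15.9% were higher and 14.8% lower. 2 of the tested genes passed the filter through the Pu arrays alone. Slit2, a secreted guidance cue, read -1.45 and -0.92 in Pu and 1.68 and 1.88 in C (7.80-fold higher, log2 difference 2.96 ± 0.30, adjusted p = 0.00049). Slit3, its relative, stood at 0.37 and 1.08 in Pu and at 3.51 and 3.87 in C, 7.79-fold higher (log2 difference 2.96 ± 0.33, adjusted p = 0.00084). The signal of Robo1, a receptor for Slits, was -1.95 and -1.98 in Pu and 0.99 and 1.5 in C, 9.21-fold higher (log2 difference 3.20 ± 0.29, adjusted p = 0.00034). Epha3, an ephrin receptor, read -1.24 and -3.11 in Pu and 1.64 and 2.10 in C (16.5-fold higher, log2 difference 4.04 ± 0.57, adjusted p = 0.0022). Efnb2, the ephrin of arterial endothelium, stood at 4.26 and 3.99 in Pu and at -1.06 and 0.03 in C, 24.9-fold lower (log2 difference -4.64 ± 0.40, adjusted p = 0.00028). Slits and their receptors Robo1 and Robo2 were thus higher together. With 1 array left out the log2 differences were 4.98 without Pu1 and 3.10 without Pu2 for Epha3, 1.77 without Pu1 and 2.98 without Pu2 for Robo2.

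Receptors for vasoactive signals fell into both sets, 7 of 21 tested higher and 8 lower. 3 of the tested genes passed the filter through the C arrays alone and 7 through the Pu arrays alone. Ptgfr, the receptor of prostaglandin F, read -3.63 and -6.23 in Pu and -0.09 and -0.59 in C, above background on 1 of the 2 Pu arrays (24.1-fold higher, or 12.8-fold with the floor, log2 difference 4.59 ± 0.74, adjusted p = 0.0039). Ednra, the endothelin receptor of mesenchymal and mural cells, read -1.38 and -0.46 in Pu and 2.06 and 2.13 in C (8.11-fold higher, log2 difference 3.02 ± 0.35, adjusted p = 0.00097). Vipr2, a receptor of vasoactive intestinal peptide, stood at -1.23 and -1.17 in Pu and at 1.23 and 2.26 in C, 7.69-fold higher (log2 difference 2.94 ± 0.42, adjusted p = 0.0021). The signal of Adra1a, an alpha-adrenergic receptor, was 1.01 and 0.66 in Pu and 3.19 and 3.98 in C, 6.70-fold higher (log2 difference 2.75 ± 0.41, adjusted p = 0.0028). Ednrb, the endothelin receptor known from endothelium, read 2.14 and 2.89 in Pu and -1.86 and -1.21 in C (16.6-fold lower, log2 difference -4.05 ± 0.61, adjusted p = 0.0029). Npr3, the clearance receptor of natriuretic peptides, stood at 0.68 and 0.20 in Pu and at -3.22 and -2.27 in C, 9.11-fold lower (log2 difference -3.19 ± 0.39, adjusted p = 0.0012). Agtr1a, the angiotensin receptor, read -1.47 and -1.73 in Pu and was not well above background on either C array (at least 4.05-fold lower in C, adjusted p = 0.00095). Of the paired endothelin receptors, A was thus higher and B lower. For Ptgfr the log2 difference was 5.89 without Pu1 and 3.29 without Pu2. Other scalings or corrections ended the call of Agtr1a (adjusted p = 0.055 with normexp correction).

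Complement genes went both ways. Of 15 tested, 8 were higher and 5 lower. 4 of the tested genes passed the filter through the Pu arrays alone. C1s1, a serine protease of the C1 complex, read 1.95 and 1.42 in Pu and 5.18 and 5.19 in C (11.3-fold higher, log2 difference 3.50 ± 0.29, adjusted p = 0.00025). C4b, the fourth component, stood at 1.11 and 2.56 in Pu and at 5.22 and 5.38 in C, 11-fold higher (log2 difference 3.46 ± 0.46, adjusted p = 0.0017). The signal of C7, a component of the membrane attack complex, was 2.79 and 3.24 in Pu and 6.01 and 6.14 in C, 8.35-fold higher (log2 difference 3.06 ± 0.28, adjusted p = 0.00037). Serping1, the C1 inhibitor, read 4.37 and 5.42 in Pu and 7.88 and 7.77 in C (7.59-fold higher, log2 difference 2.92 ± 0.38, adjusted p = 0.0015). C1qc, a chain of C1q, made by macrophages, read 0.01 and 1.19 in Pu and was not well above background on either C array (at least 18.6-fold lower in C, adjusted p = 0.00016). C5ar1, the anaphylatoxin receptor of myeloid cells, read 1.61 and 1.41 in Pu and was not well above background on either C array (at least 35.0-fold lower in C, adjusted p = 0.00080). The lower genes were the 3 C1q chains and the 2 anaphylatoxin receptors, all known from myeloid cells. The macrophage and dendritic marker sum was 639.8 and 817 on the Pu arrays and 29.8 and 26.8 on the C arrays. Its part here was not tested. Leaving out 1 array gave log2 differences of 2.74 without Pu1 and 4.18 without Pu2 for C4b, -6.74 without Pu1 and -5.56 without Pu2 for C1qc, -5.61 without C1 and -7.63 without C2 for C5ar1.

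Of 35 tested chemokines and cytokines 9 were higher and 14 lower (median -0.82). 14 of the tested genes passed the filter through the Pu arrays alone. Cxcl1, a neutrophil attractant, read 0.98 and 1.06 in Pu and 5.41 and 4.92 in C (17.7-fold higher, log2 difference 4.15 ± 0.29, adjusted p = 0.00016). Il6, the pleiotropic cytokine, stood at -0.03 and 0.09 in Pu and at 4.28 and 3.52 in C, 14.6-fold higher (log2 difference 3.87 ± 0.34, adjusted p = 0.00032). The signal of Cxcl14, a chemokine of stromal and epithelial cells, was 0.62 and 2.20 in Pu and 4.94 and 5.09 in C, 12.2-fold higher (log2 difference 3.61 ± 0.49, adjusted p = 0.0019). Tnfsf13b, the B cell survival factor BAFF, read -0.17 and -0.73 in Pu and 2.96 and 2.60 in C (9.37-fold higher, log2 difference 3.23 ± 0.32, adjusted p = 0.00046). Ccl11, eotaxin, stood at -2.11 and -2.45 in Pu and at 1.28 and -0.02 in C, 7.51-fold higher (log2 difference 2.91 ± 0.43, adjusted p = 0.0028). The signal of Csf1, the macrophage growth factor, was -0.66 and 0.39 in Pu and 1.79 and 1.57 in C, 3.51-fold higher (log2 difference 1.81 ± 0.39, adjusted p = 0.012). The lower genes included leukocyte chemokines and inflammatory cytokines, and the largest were Ccl6, Cxcl15 and Il1b. Ccl6, a macrophage chemokine, read 6.09 and 5.74 in Pu and -2.22 and -2.89 in C (355-fold lower, log2 difference -8.47 ± 0.57, adjusted p = 0.00013). Cxcl15, lungkine, a chemokine of lung epithelium, read 2.97 and 3.26 in Pu and -1.80 and -5.64 in C, above background on 1 of the 2 C arrays (114-fold lower, or 52.9-fold with the floor, log2 difference -6.83 ± 1.06, adjusted p = 0.0033). Il1b, interleukin-1 beta, read 2.83 and 3.95 in Pu and -1.93 and -3.64 in C, above background on 1 of the 2 C arrays (72.3-fold lower, or 66.9-fold with the floor, log2 difference -6.18 ± 0.60, adjusted p = 0.00044). Over the other 3 arrays the log2 differences were 2.82 without Pu1 and 4.40 without Pu2 for Cxcl14, 2.26 without C1 and 3.56 without C2 for Ccl11, -8.75 without C1 and -4.91 without C2 for Cxcl15, -7.03 without C1 and -5.32 without C2 for Il1b.

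Interferon-stimulated genes did not move together: of 19 tested 3 were higher and 5 lower, against 15.9% and 14.8% over all genes. Their median (-0.19) changed sign with median scaling (0.21). 5 of the tested genes passed the filter through the Pu arrays alone. Ifit2, an antiviral protein gene, read -2.61 and -2.81 in Pu and 0.18 and 1.44 in C (11.5-fold higher, log2 difference 3.52 ± 0.44, adjusted p = 0.0013). Rsad2, the antiviral enzyme viperin, stood at 1.79 and 1.35 in Pu and at -2.31 and -2.54 in C, 15.9-fold lower (log2 difference -3.99 ± 0.32, adjusted p = 0.00021). For Ifit2, C1 and C2 stood apart, with log2 differences of 4.15 without C1 and 2.89 without C2.

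Transcription factors of mesenchyme were higher for 17 of 30 tested and lower for 4 (median 1.58). 3 of the tested genes passed the filter through the C arrays alone and 3 through the Pu arrays alone. The signal of Tbx4, a lung mesenchyme regulator, was 0.01 and 0.90 in Pu and 3.91 and 4.09 in C, 11.7-fold higher (log2 difference 3.54 ± 0.35, adjusted p = 0.00048). Meox2, a homeobox factor, read -2.19 and -2.06 in Pu and 1.85 and 2.01 in C (16.6-fold higher, log2 difference 4.06 ± 0.27, adjusted p = 0.00013). Osr2, an odd-skipped factor, read -0.58 and -0.29 in C and was not well above background on either Pu array (at least 12.8-fold higher in C, adjusted p = 0.0022). The signal of Osr1, its relative, active in early lung mesenchyme, was 0.02 and -1.52 in Pu and 2.93 and 2.69 in C, 11.8-fold higher (log2 difference 3.56 ± 0.48, adjusted p = 0.0019). Twist2, a basic helix-loop-helix factor, read -1.89 and -4.05 in Pu and 1.31 and 0.11 in C (12.8-fold higher, log2 difference 3.68 ± 0.70, adjusted p = 0.0078). Prrx1, a regulator of fibroblasts, stood at -3.29 and -3.21 in Pu and at 0.46 and -0.35 in C, 9.89-fold higher (log2 difference 3.31 ± 0.33, adjusted p = 0.00051). The signal of Nr2f2, a nuclear receptor of mesenchyme and veins, was -2.05 and 0.04 in Pu and 1.98 and 2.86 in C, 10.8-fold higher (log2 difference 3.43 ± 0.65, adjusted p = 0.0078). Foxf1, a forkhead factor of lung mesenchyme and endothelium, read 3.79 and 4.41 in Pu and 3.54 and 3.85 in C and did not pass (log2 difference -0.40 ± 0.31, adjusted p = 0.37). The 4 lower factors were Ebf1, Foxp1, Gata3 and Wt1. Ebf1, a factor of B cells and of some fibroblasts, stood at -2.05 and -1.78 in Pu and at -3.36 and -2.94 in C, 2.35-fold lower (log2 difference -1.23 ± 0.29, adjusted p = 0.017). Wt1, the mesothelial factor, and Gata3, of lymphocytes, were not well above background on either C array. A call was missing for Ebf1 without C1 (adjusted p = 0.061), Foxp1 without C1 (adjusted p = 0.052), Gata3 without Pu1 (adjusted p = 0.13) or Pu2 (adjusted p = 0.062) or C1 (adjusted p = 0.14), Wt1 without Pu1 (adjusted p = 0.086) or C2 (adjusted p = 0.088). Arrays left out in turn gave 6.25 without Pu1 and 3.88 without Pu2 for Osr2, 4.33 without Pu1 and 2.79 without Pu2 for Osr1, 4.75 without Pu1, 2.60 without Pu2, 3.08 without C1 and 4.27 without C2 for Twist2, 2.38 without Pu1 and 4.47 without Pu2 for Nr2f2, -2.11 without C1 and -4.41 without C2 for Gata3, -3.08 without Pu1, -4.73 without Pu2, -4.59 without C1 and -3.23 without C2 for Wt1. The call also depended on the scaling or correction for Ebf1 (adjusted p = 0.10 with median scaling, 0.092 with quantile scaling and 0.43 with normexp correction), Foxp1 (adjusted p = 0.072 with median scaling), Gata3 (adjusted p = 0.20 with normexp correction) and Wt1 (adjusted p = 0.20 with normexp correction).

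Hox genes, which record position along the body axis, were higher for 10 of 15 tested and lower for none (median 2.07); 10 others on the list were not tested. 2 of the tested genes passed the filter through the C arrays alone. The signal of Hoxb4 was -1.80 and -1.33 in Pu and 1.86 and 1.01 in C, 7.98-fold higher (log2 difference 3.0 ± 0.37, adjusted p = 0.0012). Hoxa7 read -1.62 and -0.54 in Pu and 1.1 and 1.77 in C (5.73-fold higher, log2 difference 2.52 ± 0.42, adjusted p = 0.0043). Hoxa5, a gene needed for lung development, stood at 1.30 and -0.14 in Pu and at 2.61 and 2.85 in C, 4.43-fold higher (log2 difference 2.15 ± 0.47, adjusted p = 0.013). Hoxb7 read -5.74 and -3.45 in Pu and -0.60 and -0.41 in C, above background on 1 of the 2 Pu arrays (17.0-fold higher, or 8.71-fold with the floor, log2 difference 4.08 ± 0.67, adjusted p = 0.0040). Hoxc4 read -1.70 and -6.70 in Pu and 1.79 and 0.95 in C, above background on 1 of the 2 Pu arrays (47.5-fold higher, or 21.4-fold with the floor, log2 difference 5.57 ± 1.36, adjusted p = 0.020). All the tested genes belonged to the Hoxa, Hoxb and Hoxc clusters and none of the listed Hoxd genes passed the filter. No call was made for Hoxa5 without C2 (adjusted p = 0.059), Hoxc4 without C1 (adjusted p = 0.082) or C2 (adjusted p = 0.060). Removing 1 array gave log2 differences of 2.87 without Pu1 and 1.43 without Pu2 for Hoxa5, 2.94 without Pu1 and 5.23 without Pu2 for Hoxb7, 8.07 without Pu1 and 3.07 without Pu2 for Hoxc4.

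Immediate early genes, which respond within minutes to growth factors and to tissue dissociation, were higher for 12 of 22 and lower for none (median 1.30). 1 of the tested genes passed the filter through the Pu arrays alone. Egr1, a zinc finger factor, stood at 7.10 and 7.32 in Pu and at 9.19 and 9.18 in C, 3.93-fold higher (log2 difference 1.97 ± 0.26, adjusted p = 0.0016). The signal of Egr2, its relative, was 1.39 and 2.41 in Pu and 4.61 and 4.6 in C, 6.51-fold higher (log2 difference 2.70 ± 0.37, adjusted p = 0.0020). Nr4a1, an orphan nuclear receptor, read 4.62 and 4.71 in Pu and 6.44 and 6.43 in C (3.42-fold higher, log2 difference 1.77 ± 0.26, adjusted p = 0.0023). Fosb, a Fos family member, stood at 5.51 and 6.17 in Pu and at 7.70 and 7.69 in C, 3.62-fold higher (log2 difference 1.86 ± 0.31, adjusted p = 0.0046). The signal of Fos, its best-known relative, was 4.69 and 5.07 in Pu and 6.33 and 6.06 in C, 2.49-fold higher (log2 difference 1.31 ± 0.29, adjusted p = 0.014). Zfp36, which speeds the decay of inflammatory messenger RNA, read 5.67 and 6.34 in Pu and 7.60 and 7.68 in C (3.10-fold higher, log2 difference 1.63 ± 0.31, adjusted p = 0.0076). The other 10 did not pass, with log2 differences from -0.70 to 1.28. Fos did not pass without C1 (adjusted p = 0.051). Of 11 tested heat shock genes, which respond to handling as well, 3 were higher and none lower (median 0.63). The count of higher genes was 2 with quantile scaling and with the percentile over probes detected on every array, and 4 with median scaling. Over all genes 15.9% were higher and 14.8% lower. Serum response factor acts on several immediate early genes through the CArG box. Of the 17 genes of this list with a promoter in the RefSeq table (GRCm38.p6), 2 held this motif on either strand in the 250 bases before the start, as did 482 of 32851 promoters (1.47%), and both were called, which is why they are shown. A match is a description of the letters and not of binding. The stretch of Egr2 lies at chr10:67537444-67537553 on the plus strand and that of Zfp36 at chr7:28379229-28379336 on the minus strand, with the box in capitals, from 72 and 58 bases before the start.
Egr2: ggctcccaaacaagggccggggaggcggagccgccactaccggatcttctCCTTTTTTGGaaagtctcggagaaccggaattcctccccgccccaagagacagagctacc
Zfp36: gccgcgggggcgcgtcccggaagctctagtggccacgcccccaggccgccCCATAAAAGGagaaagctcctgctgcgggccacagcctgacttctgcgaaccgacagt

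Cell cycle genes were lower for 10 of 24 tested and higher for 2 (median -1.38). 7 of the tested genes passed the filter through the Pu arrays alone. Mki67, the proliferation antigen, stood at 2.33 and 2.18 in Pu and at -1.65 and -1.39 in C, 13.7-fold lower (log2 difference -3.77 ± 0.41, adjusted p = 0.00074). Ccna2, cyclin A2, read -1.0 and -0.47 in Pu and was not well above background on either C array (at least 7.37-fold lower in C, adjusted p = 0.00044). Rrm2, a subunit of ribonucleotide reductase, read -0.36 and -0.12 in Pu and was not well above background on either C array (at least 10.2-fold lower in C, adjusted p = 0.0014). Cdkn1c, the cyclin-dependent kinase inhibitor p57, stood at -1.18 and -1.93 in Pu and at 0.35 and 0.30 in C, 3.68-fold higher (log2 difference 1.88 ± 0.33, adjusted p = 0.0051). The signal of Cdkn2c, the inhibitor p18, was 0.12 and 0.45 in Pu and 2.06 and 2.04 in C, 3.39-fold higher (log2 difference 1.76 ± 0.29, adjusted p = 0.0040). The 2 higher genes were thus both inhibitors of cell cycle kinases, whereas Cdkn1a, the inhibitor p21, was lower (-1.20, and -0.91 without C2). With the probes of Cdkn1a averaged, the limma fit gave -0.53 and no call (adjusted p = 0.29). For Rrm2 the log2 difference was -5.33 without C1 and -3.52 without C2. Of 12 housekeeping genes, Tfrc, the transferrin receptor, was lower (-2.59) and the others lay between -0.81 and 0.38 without a call. Under another scaling or correction no call was made for Cdkn1a (adjusted p = 0.11 with median scaling).

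Chosen by the fitted log2 difference, the 15 highest genes were Capn6, Col28a1, Dner, Fbln7, Hoxc4, Kcnj5, Lamc3, Lonrf2, Mgarp, Nrcam, Nrg2, Prss35, Shisal1, Tceal5 and Wasf1, given here in alphabetical order because most are not measured on both sides. Both Pu arrays were above background for Fbln7 and Nrcam alone, neither for Capn6, Kcnj5, Mgarp, Nrg2, Prss35 and Shisal1, and 1 of the 2 for the others. They include matrix genes (Lamc3, Col28a1, Fbln7), a protease (Prss35) and a potassium channel (Kcnj5). Others are adhesion or signalling proteins best known from neurons (Nrg2, Dner, Nrcam). Among the 15 only Nrcam was also called higher than both A and B. Fbln7, Hoxc4, Mgarp, Tceal5 and Wasf1 averaged higher in A and in B than in C, and the others lower. Prss35, a secreted serine protease relative, read -1.11 and 2.20 in C and was not well above background on either Pu array (at least 25.2-fold higher in C, adjusted p = 0.0054). Col28a1, a collagen first known from nerve, read -4.38 and -3.43 in Pu and 1.25 and 1.79 in C, above background on 1 of the 2 Pu arrays (43.0-fold higher, or 35.3-fold with the floor, log2 difference 5.43 ± 0.41, adjusted p = 0.00019). The signal of Fbln7, a fibulin, was -1.94 and -1.01 in Pu and 3.90 and 3.78 in C, 39.9-fold higher (log2 difference 5.32 ± 0.36, adjusted p = 0.00013). Capn6, a calpain without protease activity, read -0.93 and -0.61 in C and was not well above background on either Pu array (at least 10.1-fold higher in C, adjusted p = 0.00015). Nrcam, a neuronal adhesion molecule, stood at -1.45 and -0.57 in Pu and at 3.96 and 4.49 in C, 37.6-fold higher (log2 difference 5.23 ± 0.39, adjusted p = 0.00017). The 15 lowest by the same rule were Abcg1, Chil3, Clec7a, Clic5, Ctla2a, Ctss, Cybb, Cytip, Ear1, Ear2, H2-Aa, Hbb-b1, Laptm5, Rnase2a and Tyrobp. None of these was above background on both C arrays, so their order is not known either. Most are genes of macrophages or other leukocytes, Clic5 is known from type 1 cells and Hbb-b1 is a globin. Chil3, a chitinase-like lectin that alveolar macrophages secrete, read 7.63 and 8.21 in Pu and -2.42 and -5.16 in C, above background on 1 of the 2 C arrays (3344-fold lower, or 1831-fold with the floor, log2 difference -11.71 ± 1.12, adjusted p = 0.00042). Laptm5, a lysosomal protein of leukocytes, read 4.85 and 5.29 in Pu and was not well above background on either C array (at least 413-fold lower in C, adjusted p = 4.12e-05). Cybb, the NADPH oxidase of phagocytes, read 4.63 and 4.75 in Pu and was not well above background on either C array (at least 317-fold lower in C, adjusted p = 0.00022). Hbb-b1, adult beta globin, whose copies may share probes, read 3.19 and 3.39 in Pu and was not well above background on either C array (at least 120.2-fold lower in C, adjusted p = 4.12e-05). The call of Hoxc4 was lost without C1 (adjusted p = 0.082) or C2 (0.060). With 1 array left out the log2 differences were 7.29 without Pu1 and 5.44 without Pu2 for Dner, 6.94 without Pu1, 5.10 without Pu2, 7.68 without C1 and 4.36 without C2 for Prss35, 4.0 without Pu1 and 7.55 without Pu2 for Lonrf2, 4.48 without Pu1 and 6.97 without Pu2 for Wasf1, 5.05 without Pu1 and 6.36 without Pu2 for Shisal1, 4.82 without C1 and 6.58 without C2 for Mgarp, 4.99 without Pu1 and 6.22 without Pu2 for Lamc3, 8.07 without Pu1 and 3.07 without Pu2 for Hoxc4, 6.06 without C1 and 4.73 without C2 for Kcnj5, 3.87 without Pu1 and 6.81 without Pu2 for Tceal5, and among the lowest genes -13.08 without C1 and -10.34 without C2 for Chil3, -10.71 without C1 and -8.58 without C2 for Tyrobp, -10.20 without C1 and -8.81 without C2 for Cybb, -10.83 without C1 and -8.06 without C2 for Abcg1, -8.80 without C1 and -9.99 without C2 for Ctla2a, -10.07 without C1 and -8.0 without C2 for Ear2, -9.74 without C1 and -8.26 without C2 for Clic5, -9.95 without C1 and -7.95 without C2 for Ctss, -9.60 without Pu1 and -8.25 without Pu2 for Cytip.

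The C type was also set against the other sorted types, to show where it differs from them. In the same limma fit 50 genes differed between C and A and 400 between C and B at an adjusted p under 0.05, and 48 (0.286% of the genes tested) passed in both with the same sign, 17 with C higher (0.101%) and 31 with C lower (0.185%). The number of such genes was unstable: it was 0 without A1, A2, B1 or C2, 2 without B2 and 423 without C1, with C2 as the only C array. These comparisons share the C arrays with the one above, and by the rule for naming them, 9 of the 17 were also higher than in Pu and 19 of the 31 also lower. Npnt read 3.05 and 3.22 on the A arrays, -0.04 and 0.42 on the B arrays and 6.05 and 6.43 on the C arrays (C minus A 3.11 ± 0.30, adjusted p = 0.029, and C minus B 6.05 ± 0.30, adjusted p = 0.0013). Lrat read 2.96 and 2.72 on the A arrays, 1.15 and 1.30 on the B arrays and 5.45 and 5.67 on the C arrays (C minus A 2.72 ± 0.32, adjusted p = 0.037, and C minus B 4.34 ± 0.32, adjusted p = 0.0028). For both, the C arrays lay above all 6 other arrays, and the difference from Pu was 2.60 for Npnt and 3.50 for Lrat. Vipr2 read -1.03 and -1.53 on the A arrays, -1.23 and -1.75 on the B arrays and 1.23 and 2.26 on the C arrays (C minus A 3.02 ± 0.42, adjusted p = 0.049, and C minus B 3.24 ± 0.42, adjusted p = 0.012). Nrcam read 1.23 and 1.40 on the A arrays, -0.63 and -0.22 on the B arrays and 3.96 and 4.49 on the C arrays (C minus A 2.91 ± 0.39, adjusted p = 0.046, and C minus B 4.65 ± 0.39, adjusted p = 0.0037). Rgs2, a regulator of G protein signalling, read 3.28 and 3.35 on the A arrays, 1.04 and 1.6 on the B arrays and 6.15 and 6.41 on the C arrays (C minus A 2.97 ± 0.32, adjusted p = 0.035, and C minus B 4.96 ± 0.32, adjusted p = 0.0028), and another Rgs2 probe gave -1.72 against Pu. The others were Adgrg6, an adhesion receptor, Scn3a, a sodium channel, Fam210b and Tecrl, which were higher than Pu by 1.29 to 3.89 on the log2 scale, Tecrl by at least 11.4-fold since it was not well above background on either Pu array. Against Pu, no call was made for Adgrg6 without Pu1 (adjusted p = 0.085) or C2 (adjusted p = 0.098), Scn3a without C2 (adjusted p = 0.062), Rgs2 without C2 (adjusted p = 0.054). Other scalings or corrections ended the call of Adgrg6 (adjusted p = 0.059 with the percentile over probes detected on every array and 0.063 with normexp correction).

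Among genes lower in C than in A, B and Pu, 3 of the 10 named by the rule belong to the Ly6 family of surface proteins, whose close copies can share probes: Ly6c1, Ly6g and Ly6a2. Ly6c1 read 6.63 and 7.07 on the A arrays, 7.43 and 7.35 on the B arrays and 3.52 and 2.13 on the C arrays (C minus A -4.03 ± 0.46, adjusted p = 0.037, and C minus B -4.57 ± 0.46, adjusted p = 0.0052). Agtr1a read -1.12 and -1.29 on the A arrays and 0.01 and 0.18 on the B arrays and was not well above background on either C array, at least 5.32-fold lower than A (adjusted p = 0.029) and at least 13.1-fold lower than B (adjusted p = 0.0028). Il1r2, the decoy receptor of interleukin-1, read -1.22 and -0.66 on the A arrays and -1.17 and -1.15 on the B arrays and was not well above background on either C array, at least 6.41-fold lower than A (adjusted p = 0.029) and at least 5.49-fold lower than B (adjusted p = 0.0054). Cmah, the enzyme that makes a sialic acid, read -0.91 and -0.27 on the A arrays and 1.72 and 1.54 on the B arrays and was not well above background on either C array, at least 8.14-fold lower than A (adjusted p = 0.029) and at least 38.1-fold lower than B (adjusted p = 0.0028). Another Cmah probe, used when probes had to be above background on all 4 compared arrays, gave a log2 difference of -1.04 from Pu and of 0.59 from A (adjusted p = 0.67). Gda, a guanine deaminase, read 2.72 and 3.16 on the A arrays, 3.18 and 3.24 on the B arrays and -1.57 and -0.15 on the C arrays (C minus A -3.80 ± 0.51, adjusted p = 0.046, and C minus B -4.07 ± 0.51, adjusted p = 0.011). In each, both C arrays lay below all 6 others, the pattern for which these genes were chosen. Ccl8, a chemokine, Nipal3, a magnesium transporter relative, and Rbm24, an RNA-binding protein, completed the set; none was well above background on either C array, and they were lower than Pu by at least 3.02-fold, 43.0-fold and 2.44-fold. A further 5 genes were lower in C than in A and B yet higher than in Pu: Aoc3, Cd248, Lgi2, Scara3 and Sfrp4. Cd248, an adventitial marker, read 1.34 and 1.67 on the Pu arrays and 5.42 and 5.48 on the A arrays, 6.02 and 5.77 on the B arrays and 3.02 and 2.97 on the C arrays (C minus A -2.45 ± 0.27, adjusted p = 0.036, and C minus B -2.90 ± 0.27, adjusted p = 0.0044). In the opposite case were Cemip2 and Chd7, higher in C than in A and B and lower than in Pu. Aldh1a2, named above, was lower in C than in both other types (C minus A -4.33 ± 0.59, adjusted p = 0.049, and C minus B -4.10 ± 0.59, adjusted p = 0.018) and did not pass against Pu. Against Pu the log2 differences were -8.17 without Pu1 and -6.89 without Pu2 for Nipal3, -3.54 without C1 and -2.15 without C2 for Ly6c1, -2.83 without C1 and -4.25 without C2 for Gda. In a limma fit of the 4 compared arrays alone, Aoc3 and Cd248 did not pass against Pu (adjusted p = 0.099 and 0.077). Against Pu, no call was made for Scara3 without C1 (adjusted p = 0.053), Chd7 without C1 (adjusted p = 0.053). The call also depended on the scaling or correction for Ccl8 (adjusted p = 0.33 with normexp correction), Chd7 (adjusted p = 0.080 with median scaling), Ly6a2 (adjusted p = 0.29 with normexp correction), Rbm24 (adjusted p = 0.42 with normexp correction) and Scara3 (adjusted p = 0.060 with normexp correction).

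**Figure D5:**
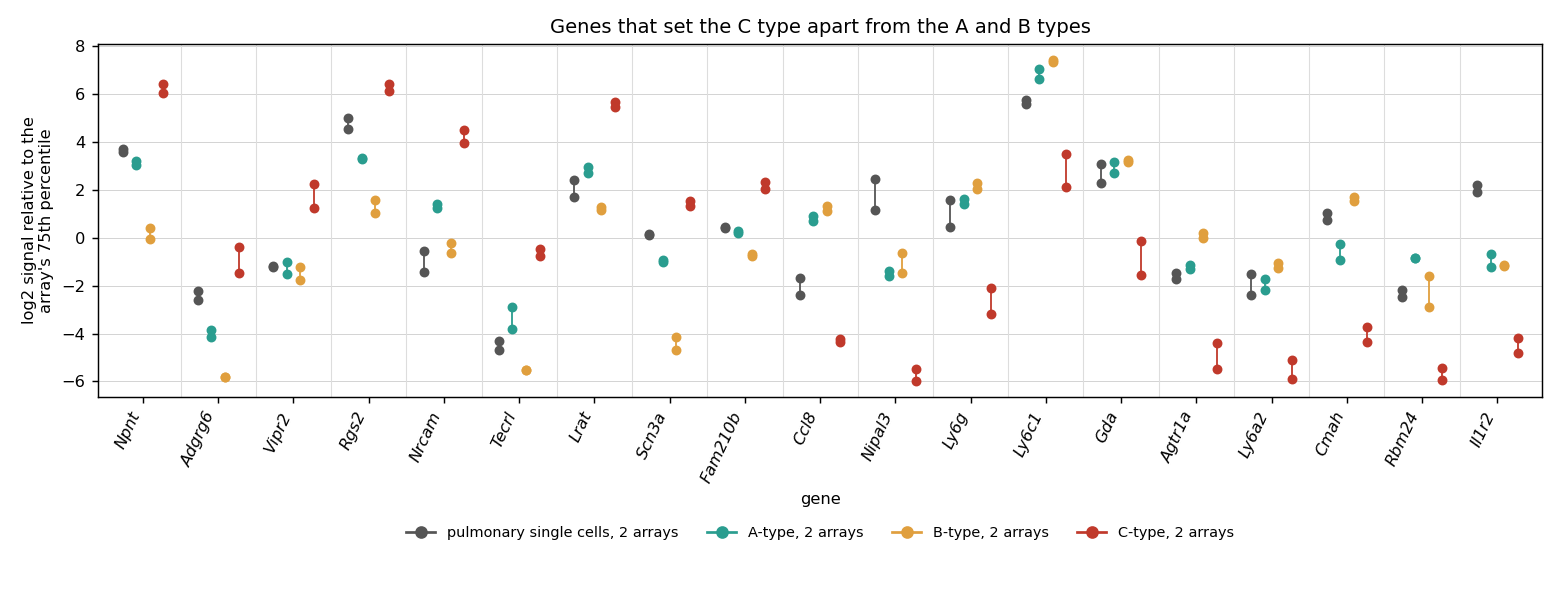
Log2 signal relative to the 75th percentile of the array (y axis) on all 8 arrays for the 9 genes higher and 10 lower in C than in A, B and Pu (x axis); each pair of joined points is the 2 arrays of a group. These genes were chosen for this pattern, so the separation of the red points is how they were picked.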

How the data were processed

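Total RNA of 8 samples, 2 per group, was hybridised to 1-colour mouse Agilent arrays, 1 array per sample. Per the file headers, the values used are gProcessedSignal, an intensity from which the scanner software had already subtracted background; the submitters' processing notes name Agilent Feature Extraction 10.10.1.1. The authors also deposited a table of log2 values; each array's column equalled the log2 of its processed signal minus a constant, within 0.02 for 100% of probes, with a median of 4.84 on each array, and it served as an alternative. Per the labels, RNA was amplified from 10 ng before labelling, a step that can widen the spread of dim probes.

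Each array was scaled by subtracting the 75th percentile of its log2 signal. Of 59305 non-control spots, spots of 1 probe were averaged to 55681 probes and 28 were left out for outlier flags; 0 probes were saturated. Probes were kept where they were well above background on both arrays of the C or of the Pu group. Names came from the RefSeq gene table through the probe's accession (28011 probes) or another accession (328), a synonym (271) or the symbol (4654); 22389 probes had no name and 818 matched several genes. Of a gene's kept probes the brightest over all arrays was tested, 16759 genes in all.

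limma 3.58.1 (R 4.3.3) fitted the 4 group means to all 8 arrays, with Benjamini-Hochberg adjustment over all genes tested and a call at an adjusted p under 0.05. The fit was tested on simulated data with known changes and the same spread on all arrays of a gene. That test therefore does not cover groups of unequal spread, as found here. Whether samples with the same replicate number were paired is not known, and the main fit did not pair them. Precision is limited by the number of arrays, 2 per group. P-values measure the spread between these samples. Other scalings, corrections, filters, probe rules and variance models, and each array left out, were tried as alternatives.

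Named genes are those of the sorting panel, the called genes separated on all 4 arrays with the 15 highest and the 15 lowest differences, the members of each list with the greatest differences (up to 6 a direction) or with a needed role, and up to 10 a direction that stand apart from A and B as well. The comparison, its members and the gene lists were chosen with earlier results of these data known. Tables were made with Python 3.11.15, pandas 2.3.3 and numpy 2.4.6, and figures with matplotlib 3.10.9. A few genes of the lists enter the counts but are not reported here by name.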

Additional observations from a re-analysis of the deposited data

Results flagged for a closer look

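Probes without a gene name in the RefSeq table were not part of the gene comparison. Of 12987 such probes that passed the filter, 702 were higher in C than in Pu and 1405 were lower when every probe was tested by itself in the same limma fit. Over all 35767 probes of that fit, named or not, 3786 were higher and 4484 lower, so probes without a name were called less often than probes at large. What these probes measure is not known from the tables used here.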

How the results depend on the processing

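At the main settings 5134 genes were called between C and Pu, and 48 stood apart from both A and B. The first count was 8270 of 35767 with every probe tested by itself, 2525 with the 4 compared arrays alone and 2373 with array weights. Leaving out 1 array gave 3823 to 6463. The second count was less stable: 25 with quantile scaling, 161 with the normexp correction, 97 with probes above background on all 4 compared arrays, 1 with no filter, 75 with a gene's probes averaged, 20 with every probe, 175 with array weights, 117 with a trended robust variance, and 0 to 423 with 1 array left out. With the replicate number as a block 4677 genes were called and 16 stood apart, and 3 of the 269 called genes named lost their call. Same-numbered deviations correlated between -0.095 and 0.075, so no shared replicate effect was seen. Such values cannot tell whether the samples were paired. No fit with the slide as a block was possible, because each group lay on 1 slide and the Pu arrays had a slide of their own. Every other value of either count was within 1.5 times the main one. Of the called genes named, 42 lost the call with array weights, 37 with the 4 arrays alone, 19 with normexp, 11 with the authors' table, 10 with median scaling and at most 8 under each of the others apart from arrays left out, where it was up to 18. Rgs2 was the 1 called gene that turned (-0.11 with the mean of its probes); of genes without a call, Col4a2 turned with a percentile over the probes above background on every array (-0.15), with quantile scaling (-0.18), without Pu2 (-0.00) and without C2 (-0.16; 0.47 without C1), Mcam with median scaling and the authors' table (0.14 in both), Rarb without Pu1 (0.09, against -1.50 without Pu2), and Csf3r, near 0, with the percentile taken only over probes above background on every array (-0.29), with normexp (-0.10) and without Pu1 (-0.25, against 0.29 without Pu2). With the filter on all 4 arrays Cmah, read from another probe, had a C minus A difference of 0.59. Of 1344 counts of list members, 119 moved by over 1.5 times. Probes near background set the limit of what can be read: 1505 genes tested were above it on no C array and 129 on no Pu array. The cause of these changes was not tested.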
